A study of Equus caballus with 34 samples.

Results

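Granulosa cells (GC) of the equine dominant follicle were compared between the preovulatory (PO) and the late dominant (LD) stage. All samples whose titles name these groups were taken, 5 arrays each, out of 34 arrays in the series. The series measured total RNA of GC and of the theca wall (TW) of Equus caballus at the early dominant (ED), LD and PO stages. Each sample had its own single-colour Agilent array, and the design text calls the samples biological replicates. The 5 GC ED arrays entered the same fit and lent it their spread, and the 9 LD and 5 PO arrays of TW gave the comparison with the other layer. The labels give no treatment, age or breed, and do not say how follicles were staged.

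Granulosa cells line the follicle, divide under follicle stimulating hormone and estradiol, and make estradiol from androgens supplied by the theca. After the luteinizing hormone surge they leave the cell cycle and begin to luteinize. With the cumulus and theca they prepare the rupture of the follicle wall through prostaglandins, epidermal growth factor-like ligands, proteases and a hyaluronan-rich matrix.

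Levels are log2 of the background-subtracted signal relative to the 75th percentile of the same array, so that 0 is the level of that percentile. Values are listed for replicates 1 to 5 in order. Between 64.3% and 74.0% of the spots of a GC array were well above background, and the number of arrays sets the precision. Arrays LD 3 and PO 2 were the most alike of all pairs of GC arrays, although they belong to different stages and slides (SD of the log2 difference 0.542, against 0.703 for the next pair). That next pair was LD 5 with ED 5, on 1 slide. LD 4 likewise lay nearer to ED 4 of its slide (0.797) than to its nearest LD array, LD 5 (0.912). The mean distance to the other arrays of the stage was 1.63 for LD 3, the highest of the LD arrays, and 1.24 for PO 2, just below the 1.27 of PO 4. This distance was 0.947 to 1.06 for the ED arrays and 1.31 to 1.63 for the LD arrays. The ED arrays that lent the fit their spread thus lay closer together than the LD arrays compared. LD 3 and PO 2 were kept, and results are also given without them. Each LD array shared a slide with the PO array of the same number, and numbers were given in accession order. Of 17 granulosa markers with a probe, 12 were well above background on all 10 arrays. Of 9 oocyte genes, 4 (BMP15, DDX4, DAZL and FIGLA) were so on none. Of 29 leukocyte markers 10 were well above background on all 10 arrays and CD4 on none, and their summed level ran from 4.61 to 5.70 at LD and from 5.45 to 5.60 at PO. By limma, 0 of 25 leukocyte markers tested were called (4 higher and 2 lower at an unadjusted p under 0.05, and 4 and 1 called without LD 3 and PO 2). Their median was highest on LD 3 (1.27 above the LD mean) and PO 2 (1.47), and their part in any result was not tested. The summed level of 18 endothelial markers, 2 of them well above background on all 10 arrays and TEK on none, ran from −2.17 to 0.73 at LD and from −1.39 to −0.82 at PO. That of 16 smooth muscle markers, with 7 on all 10 arrays and MYH11 on none, ran from 1.56 to 5.56 at LD and from 3.58 to 4.81 at PO. That of 16 theca markers, 12 of them on all 10 arrays, ran from 4.25 to 6.85 at LD and from 3.83 to 5.63 at PO. Fewer cells of a type and less RNA per cell cannot be told apart in such samples.

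The transcripts that carry the main results were read by 60-base probes. The first 30 bases of 8 of them are printed to show what was measured for a fibrinogen chain, 2 WNT antagonists, a neurotrophin, 2 helicases, a tight junction protein and a topoisomerase. Positions are those in the array files, which name no genome build. The risers were read by FGG at chr2:64782192-64782251 (plus strand), DKK1 at chr1:42190204-42190263 (plus strand), SFRP2 at chr2:65506389-65506448 (plus strand), BDNF at chr7:81844442-81844501 (minus strand) and WRN at chr27:12703807-12703866 (minus strand). The fallers were read by HFM1 at chr5:46394389-46394448 (plus strand), OCLN at chr14:91865083-91865142 (minus strand) and TOP2A at chr11:20942805-20942864 (plus strand).
FGG: caaagcctcacttcattttaagagtaaaaa
DKK1: atacagaaagatcaccatcaagccagtaat
SFRP2: agataccaaaatcatcctggagaccaagag
BDNF: ggcggttcataaggatagacacttcctgtg
WRN: tgagatcctgagaaaagattgtgacaacag
HFM1: taggtatcatcctgatgatgaagctgatga
OCLN: aagagcaaattgtcgcacatcaagaagatg
TOP2A: ggacgggcaaggaaacctataaagtacctc

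Across all genes, 4309 of 24524 features were called at a limma adjusted p under 0.05, 1682 (6.86%) higher and 2627 (10.7%) lower at PO. Among 9882 features with a gene symbol, 739 (7.48%) were higher and 719 (7.28%) lower. 104 rises and 34 falls exceeded 16-fold, while the median size of a called change was 1.41 for rises and 1.80 for falls. The LD and PO arrays did not overlap for 437 of the rises and 898 of the falls. Of all features tested, 2.61% were separated upwards and 4.01% downwards. Within the slides, 1117 rises (66.4%) and 2094 falls (79.7%) had the same direction on all 5. These features were called by their change on the same arrays, so the choice itself raises these shares. With slide as a fixed block, 1695 and 2640 were called.

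The counts depended on single arrays. Without LD 3 and PO 2, 3290 features were higher and 4034 lower among 24013 tested. These included 1594 of the 1682 rises and 2617 of the 2627 falls. The 2 arrays were singled out after seeing that they were the most alike pair although from different stages. Leaving them out sets the stages further apart, and the other arrays stay the same. Higher counts and kept calls can thus follow from the choice, here and in the lists below, and are no separate check. The count of rises was 3340 without LD 3, 641 without LD 4, 734 without LD 5, 962 without PO 1, 739 without PO 3 and 693 without PO 5. That of falls was 1428 without LD 4, 1544 without LD 5, 1551 without PO 3 and 1591 without PO 5. The 75th percentile left the median change of all features at 0.01, and 39% of calls were rises. Centring on the median moved these to 0.12 and 49.6%. The named genes were chosen mainly because their calls held on leaving out any single array, so that their calls say nothing of how stable the others are. Of the 138 called, 74 were called in every setting run. Without LD 3 and PO 2, 7 of them could not be tested. These were DKK1, SFRP2, RAB3A, NRG2, SULT2A1, KCNA3 and BCL2L1, too rarely above background to enter that fit. They passed the filter of the reported fit mainly through the PO arrays, where they were high, with most LD arrays not well above background.

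**Figure D1:**
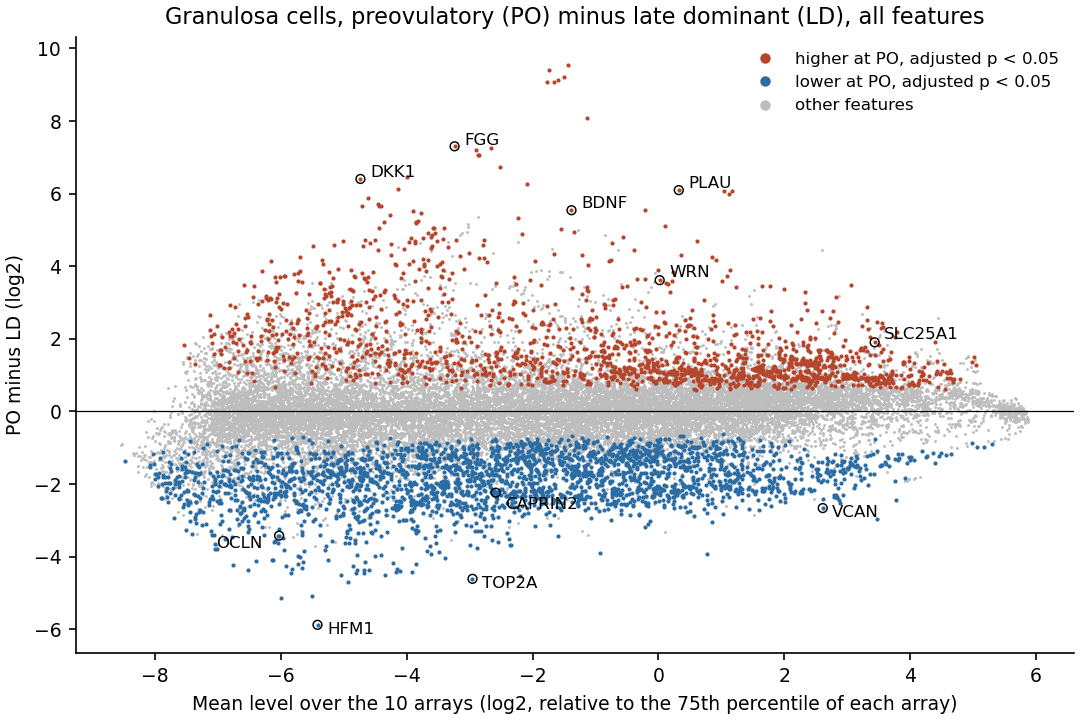
Change from late dominant to preovulatory in granulosa cells (log2, y axis) against the mean level over the 10 arrays (log2, x axis), 1 point per feature, red and blue for the features called higher and lower. The 104 rises over 16-fold lie above 4 on the y axis, and the 34 falls over 16-fold below −4.

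The largest rises among all features were read by probes of 2 transcripts on chromosome 12 without a gene symbol, described in the array files as similar to lipophilin CL2. Another transcript with that description lies beside them. They were singled out after their values were seen. Lipophilins are small secreted proteins of the secretoglobin family. The probes lie at chr12:12933670-12934453 for locus LOC100063320, at chr12:12695115-12695178 for LOC100063196 and at chr12:12480911-12480974 for LOC100062973. The probe of LOC100063320 with the largest change stood at −8.17, −8.11, 3.92, −9.11 and −9.58 on the LD arrays and 4.57, 2.86, 3.18, 2.99 and 3.11 on the PO arrays. Among the LD arrays LD 3 alone was high, and it lay within the PO range. The change was 9.55 ± 1.90 (SE, adjusted p = 0.00718). Its 3 tested probes gave 6.45 to 9.55, although 4 of 8 probes were never well above background. For LOC100063196 the levels were −8.12, −7.42, 3.60, −6.49 and −7.43 on the LD arrays and 4.16, 2.51, 2.64, 2.60 and 2.63 on the PO arrays, again with LD 3 within the PO range. The change was 8.08 ± 1.66 (SE, adjusted p = 0.00794), and its 5 probes, which overlap each other, gave 8.08 to 9.42. LOC100062973 stood at −5.49, −7.65, 2.61, −9.28 and −9.64 on the LD arrays and −0.40, 2.65, 1.80, −1.80 and 1.94 on the PO arrays. Its change was 6.73 ± 1.78 (SE, adjusted p = 0.0205), and it passed on leaving out a single array in 6 of 10 cases (adjusted p up to 0.0602). Without LD 3 and PO 2 the changes of LOC100063196 and LOC100062973 were 10.38 and 8.40, and LOC100063320 could not be tested. In TW the probes changed, in the order given, by 6.29, 4.44 and 4.07 (adjusted p = 0.0162, 0.0442 and 0.1). The difference between the layers had adjusted p = 0.364, 0.224 and 0.458. The number of LD arrays with a signal well above background was 1, 2 and 2, so the sizes are not exact, and whether related copies share signal was not tested. On the ED arrays that number was 0, 1 and 0, and on the PO arrays 5 for each. These probes thus passed the filter of the reported fit mainly through the PO arrays, where they were high.

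Among features with a symbol, the rise of FGG, the gamma chain of fibrinogen, was the largest. FGG stood at −8.15, −8.03, −0.30, −9.06 and −8.92 on the LD arrays and 0.70, 0.05, 1.33, 0.63 and −0.65 on the PO arrays. LD 3 lay within the PO range, and the other LD arrays were not well above background. Its change was 7.30 ± 1.29 (SE, adjusted p = 0.00569), and 9.04 without LD 3 and PO 2. BDNF, a neurotrophin made by granulosa cells that acts on the oocyte, stood at −2.32, −3.66, −1.16, −6.08 and −7.55 on the LD arrays and 2.08, −0.89, 1.54, 2.60 and 1.61 on the PO arrays. All PO arrays lay above all LD arrays, although PO 2 lay only just above LD 3. The change was 5.54 ± 1.01 (SE, adjusted p = 0.00582), and 6.86 without LD 3 and PO 2. ABCC8, the sulfonylurea receptor subunit of ATP-sensitive potassium channels, stood at −8.16, −6.09, −2.36, −7.92 and −8.77 on the LD arrays and −0.41, −1.54, −1.15, −1.14 and −1.50 on the PO arrays. The stages did not overlap, and the change was 5.51 ± 0.91 (SE, adjusted p = 0.00547). PNMT, the enzyme that makes adrenaline from noradrenaline, stood at −7.07, −6.85, −4.07, −7.62 and −7.75 on the LD arrays and −3.07, −4.22, −2.09, −3.15 and −2.28 on the PO arrays. LD 3 lay just above PO 2 and the other arrays were separated, and the change was 3.71 ± 0.62 (SE, adjusted p = 0.00547). WRN, a RecQ helicase, stood at −3.36, −1.22, 0.04, −1.96 and −2.44 on the LD arrays and 2.94, −0.39, 2.72, 0.94 and 2.93 on the PO arrays. PO 2 lay below LD 3, and every other PO array lay above all LD arrays. WRN rose by 3.62 ± 0.67 (SE, adjusted p = 0.00609), or 4.63 without LD 3 and PO 2. PLCL1, a catalytically inactive relative of phospholipase C, rose by 4.65 ± 0.80 (SE, adjusted p = 0.00565), with −9.28 to −4.32 at LD and −3.71 to −0.95 at PO. SLC16A10, a transporter of aromatic amino acids, ran from −7.06 to −2.88 at LD and from −2.62 to 0.47 at PO and rose by 4.24 ± 0.73 (SE, adjusted p = 0.00565). GNAZ, a G protein alpha subunit, rose by 4.30 ± 0.88 (SE, adjusted p = 0.0078), with −9.20 to −3.08 at LD and −3.41 to −1.24 at PO. PLCL1 and SLC16A10 did not overlap between the stages, and GNAZ did, with LD 3 the LD array nearest to PO for GNAZ. MORN3, a protein with MORN repeats, ran from −6.59 to −3.03 at LD and from −3.25 to 0.96 at PO and rose by 4.22 ± 0.79 (SE, adjusted p = 0.00612). DNAAF6, an assembly factor of axonemal dynein, rose by 2.36 ± 0.42 (SE, adjusted p = 0.00569), with −6.40 to −4.89 at LD and −4.69 to −2.44 at PO. PLAU, the urokinase protease, ran from −4.58 to 0.59 at LD and from −0.88 to 4.66 at PO and rose by 6.10 ± 1.12 (SE, adjusted p = 0.00587). DNAAF6 did not overlap between the stages, and MORN3 and PLAU did, with LD 3 the LD array nearest to PO for PLAU. AGPAT4, an acyltransferase of phospholipid synthesis, rose by 5.32 ± 0.81 (SE, adjusted p = 0.00544), with −6.26 to −2.20 at LD and −2.54 to 1.60 at PO. AGPAT4 overlapped between the stages, with LD 3 the LD array nearest to PO for this gene. FGG, ABCC8 and PNMT were well above background in 1 of 5 arrays at LD, GNAZ in 2 of 5 arrays at LD and PLCL1 in 3 of 5 arrays at LD. BDNF, SLC16A10, MORN3 and AGPAT4 had such signals in 4 of 5 arrays at LD, so these sizes are not exact. PNMT (now 1.05) and DNAAF6 (now 0.89) missed the threshold with normexp background correction (adjusted p = 0.056 to 0.0653). Here and below, that correction added an offset of 50 to each signal, which shrinks the log2 changes of dim probes.

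QSOX1, CMTM7 and GRAMD1B are named because they were among the 6 rises of at least 2 with the smallest spread at PO, so their narrow PO ranges follow from the choice. QSOX1, a secreted enzyme that forms disulfide bonds, stood at −3.28, −2.14, −0.55, −3.61 and −3.96 on the LD arrays and −0.56, −0.53, −0.48, −0.24 and −0.43 on the PO arrays. LD 3 lay at the PO level. The change was 2.26 ± 0.52 (SE, adjusted p = 0.0118). CMTM7, a membrane protein of the MARVEL family, ran from −1.04 to 2.09 at LD and from 2.16 to 2.69 at PO and rose by 2.18 ± 0.51 (SE, adjusted p = 0.0123). GRAMD1B, which carries cholesterol from the plasma membrane to the endoplasmic reticulum, rose by 2.15 ± 0.51 (SE, adjusted p = 0.0129), with 0.05 to 3.57 at LD and 3.57 to 4.06 at PO. CMTM7 and GRAMD1B did not overlap between the stages. GRAMD1B missed the threshold in a fit of the 10 LD and PO arrays alone (adjusted p = 0.05).

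**Figure D2:**
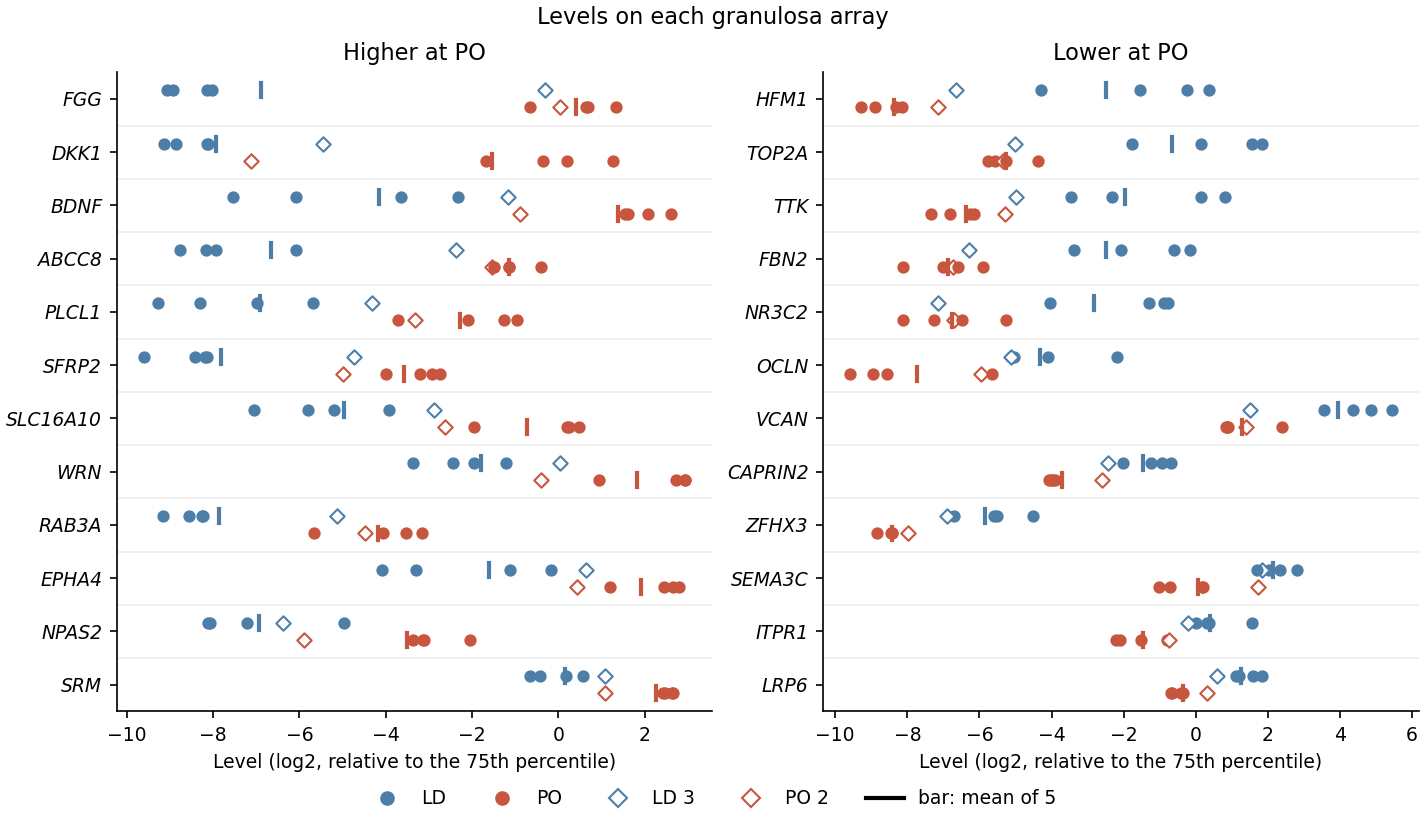
Level of 12 genes that rose and 12 that fell on each array (log2 relative to the 75th percentile of the array, x axis), blue for late dominant and red for preovulatory, with a bar at the mean of 5 and open diamonds for LD 3 and PO 2. For FGG, LD 3 at −0.30 lies inside the PO range of −0.65 to 1.33, and for TOP2A, LD 3 at −5.01 lies inside the PO range of −5.76 to −4.37.

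The largest fall was that of HFM1, a helicase of meiotic crossover formation, which stood at −1.55, −4.29, −6.66, 0.36 and −0.26 on the LD arrays and −8.14, −7.15, −8.90, −8.31 and −9.30 on the PO arrays. All PO arrays lay below all LD arrays, and within LD the level ran from the highest on LD 4 to the lowest on LD 3. The change was −5.88 ± 1.04 (SE, adjusted p = 0.00569), and −7.23 without LD 3 and PO 2. REP15, an effector of the trafficking protein RAB15, ran from −4.92 to −0.99 at LD and from −8.29 to −4.82 at PO and fell by 4.16 ± 0.72 (SE, adjusted p = 0.00569). FBN2, a fibrillin of extracellular microfibrils, fell by 4.37 ± 0.94 (SE, adjusted p = 0.00928), with −6.28 to −0.16 at LD and −8.11 to −5.91 at PO. FAM83B, a signalling scaffold, ran from −6.69 to −0.25 at LD and from −8.63 to −6.09 at PO and fell by 4.50 ± 1.11 (SE, adjusted p = 0.0157). REP15, FBN2 and FAM83B overlapped between the stages, with LD 3 the LD array nearest to PO for REP15, FBN2 and FAM83B. The smaller falls named next had arrays that lay closer together. Genes were named partly by a low adjusted p, which for a small change favours a small spread, so this closeness follows partly from the choice. ZFHX3, a zinc finger homeobox factor, stood at −6.71, −4.51, −6.91, −5.50 and −5.60 on the LD arrays and −8.42, −7.98, −8.44, −8.85 and −8.45 on the PO arrays. The stages did not overlap, and the change was −2.58 ± 0.38 (SE, adjusted p = 0.00544). CAPRIN2, an RNA-binding protein, stood at −0.68, −2.03, −2.43, −1.24 and −0.95 on the LD arrays and −4.06, −2.59, −3.91, −4.02 and −3.95 on the PO arrays, likewise without overlap. It changed by −2.24 ± 0.37 (SE, adjusted p = 0.00547). IL12A, a subunit of interleukin-12, fell by 1.78 ± 0.26 (SE, adjusted p = 0.00544), with −2.79 to −1.43 at LD and −4.13 to −3.47 at PO. LNX2, a ubiquitin ligase, ran from −5.41 to −3.97 at LD and from −7.01 to −5.52 at PO and fell by 1.96 ± 0.34 (SE, adjusted p = 0.00565). RAB23, a GTPase that restrains hedgehog signalling, fell by 2.07 ± 0.34 (SE, adjusted p = 0.00547), with −4.27 to −3.15 at LD and −6.49 to −4.62 at PO. IL12A, LNX2 and RAB23 did not overlap between the stages. ZFP90, a zinc finger gene, ran from −2.09 to −0.43 at LD and from −4.09 to −2.52 at PO and fell by 1.98 ± 0.35 (SE, adjusted p = 0.00569). ZFP90 did not overlap between the stages. ZFHX3 was well above background in 3 of 5 arrays at LD, FAM83B in 4 of 5 arrays at LD and FAM83B in 1 of 5 arrays at PO. REP15, FBN2 and LNX2 had such signals in 2 of 5 arrays at PO, so these sizes are not exact. HFM1 was not well above background on any PO array and was at least 20.8-fold lower at PO. ZFHX3 was not well above background on any PO array and was at least 2.02-fold lower at PO. ZFHX3 (now −0.28), LNX2 (now −0.58) and RAB23 (now −0.66) missed the threshold with normexp background correction (adjusted p = 0.0591 to 0.624).

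In the WNT pathway the secreted antagonists DKK1 and SFRP2 and the receptor FZD4 rose, and the receptors LRP6, FZD3 and FZD6 and the scaffold APC fell. DKK1, a secreted protein that blocks the co-receptor LRP6, stood at −8.14, −8.11, −5.44, −9.13 and −8.87 on the LD arrays and 1.26, −7.11, −0.35, 0.20 and −1.68 on the PO arrays. 4 PO arrays lay far above every LD array, and PO 2 lay below LD 3. The change was 6.40 ± 1.21 (SE, adjusted p = 0.00612). SFRP2, a secreted protein that binds WNT ligands, stood at −8.18, −8.14, −4.72, −8.41 and −9.60 on the LD arrays and −2.92, −4.99, −3.98, −2.75 and −3.20 on the PO arrays. LD 3 lay just above PO 2, and the change was 4.24 ± 0.71 (SE, adjusted p = 0.00547). On the receiving side, LRP6 stood at 1.11, 1.20, 0.58, 1.84 and 1.58 on the LD arrays and −0.40, 0.31, −0.35, −0.66 and −0.70 on the PO arrays. Its stages were separate, and the change was −1.62 ± 0.42 (SE, adjusted p = 0.0187). FZD4, a WNT receptor, rose by 3.03 ± 0.88 (SE, adjusted p = 0.0296), with −9.54 to −3.64 at LD and −4.68 to −2.71 at PO. FZD4 overlapped between the stages. FZD6, another WNT receptor, ran from −2.94 to −2.09 at LD and from −5.04 to −2.07 at PO and fell by 2.03 ± 0.48 (SE, adjusted p = 0.0133). FZD3, a receptor of the same family, fell by 1.39 ± 0.37 (SE, adjusted p = 0.0222), with −6.41 to −4.38 at LD and −7.74 to −6.63 at PO. APC, a scaffold of the complex that degrades beta-catenin, ran from −5.43 to −4.44 at LD and from −7.15 to −5.62 at PO and fell by 1.31 ± 0.32 (SE, adjusted p = 0.0147). FZD3 and APC did not overlap between the stages, and FZD6 did. Of 37 WNT signalling genes tested, 3 (8.11%) were called higher and 5 (13.5%) lower at PO, and 2 and 8 without LD 3 and PO 2. The shares over all features were 6.86% and 10.7%, and the median change of the list was −0.45 against 0.01 over all features. In TW the median of the list was 0.35, and 10 of its genes had a change lower in GC than in TW against 1 higher. In that comparison of the layers, 10.7% of all features were called lower and 8.81% higher. DKK1 and SFRP2 were well above background in 1 of 5 arrays at LD, FZD4 in 2 of 5 arrays at LD and FZD3 in 1 of 5 arrays at PO. DKK1 and APC had such signals in 4 of 5 arrays at PO, so these sizes are not exact. SFRP2 (now 1.00), APC (now −0.32), FZD3 (now −0.30) and FZD4 (now 0.72) missed the threshold with normexp background correction (adjusted p = 0.0828 to 0.631). FZD6, APC, FZD3 and FZD4 missed the threshold in a fit of the 10 LD and PO arrays alone (adjusted p = 0.052 to 0.0825). FZD3 missed the threshold in the deposited value table (adjusted p = 0.08). LRP6 missed it without LD 4 (adjusted p = 0.0545). FZD4 missed it without LD 4, LD 5, PO 1, PO 3 or PO 5 (adjusted p = 0.0548 to 0.0835). FZD3 missed it without PO 1 (adjusted p = 0.0547). The higher WNT count was 1 on leaving out one at a time of PO 1, PO 3 and PO 5. The lower WNT count was 3 to 8 on leaving out one at a time of LD 4 and PO 2.

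Peptide hormone genes that rose at PO included, besides BDNF, CHGA, chromogranin A of dense-core granules, which stood at −8.29, −6.95, −5.74 and −7.58 on the LD arrays and −4.84, −5.03, −4.74, −5.43 and −4.99 on the PO arrays (LD 5 was left out as an outlier spot). It changed by 2.14 ± 0.40 (SE, adjusted p = 0.00612) without overlap. NPPC, whose peptide keeps the oocyte in meiotic arrest, stood at −2.09, −5.12, −0.83, −1.20 and 0.98 on the LD arrays and 2.51, −0.79, 2.42, 2.33 and 2.92 on the PO arrays. NPPB, the B-type natriuretic peptide, stood at −2.48, −3.26, −2.32, −2.74 and −1.35 on the LD arrays and 0.05, −2.34, 0.03, −0.06 and 0.36 on the PO arrays. For both, 4 PO arrays lay above the LD arrays and PO 2 lay within their range. The changes were 3.53 ± 0.97 (SE, adjusted p = 0.0239) for NPPC and 2.04 ± 0.52 (SE, adjusted p = 0.0176) for NPPB. RAB3A, a GTPase of regulated exocytosis, stood at −8.25, −8.24, −5.13, −8.55 and −9.17 on the LD arrays and −4.06, −4.48, −3.54, −5.65 and −3.15 on the PO arrays. LD 3 lay above PO 4, and the change was 3.69 ± 0.65 (SE, adjusted p = 0.00569). RAB3B, a relative of RAB3A, rose by 2.88 ± 0.66 (SE, adjusted p = 0.0121), with −9.68 to −6.96 at LD and −6.93 to −3.99 at PO. RAB3B did not overlap between the stages. SYTL4, granuphilin, which docks granules through Rab proteins, went the other way, at −1.45, 0.47, −3.57, −1.74 and 0.60 on the LD arrays and −4.27, −3.54, −4.43, −2.30 and −4.28 on the PO arrays. LD 3 lay inside the PO range, and the change was −2.63 ± 0.66 (SE, adjusted p = 0.0171). Of 33 neurotrophin and neuropeptide genes tested, 6 (18.2%) were called higher and 0 (0%) lower at PO (0 lower at an unadjusted p under 0.05), and 10 and 0 without LD 3 and PO 2, with a median of 0.75 (0.14 without those arrays). Of 44 exocytosis genes tested, 3 (6.82%) were called higher and 1 (2.27%) lower at PO, and 5 and 3 without LD 3 and PO 2. The share of rises is close to that of all features (6.86%), and the median was 0.24. Among all features 10.7% were called lower. RAB3A was well above background in 1 of 5 arrays at LD, CHGA in 2 of 5 arrays at LD and RAB3B in 4 of 5 arrays at PO, so these sizes are not exact. RAB3B was not well above background on any LD array and was at least 2.64-fold higher at PO. CHGA (now 0.22), RAB3A (now 0.67) and RAB3B (now 0.42) missed the threshold with normexp background correction (adjusted p = 0.214 to 0.79). NPPC and SYTL4 missed the threshold in a fit of the 10 LD and PO arrays alone (adjusted p = 0.0605 to 0.0639). CHGA missed the threshold in the deposited value table (adjusted p = 0.0563). NPPC missed it without PO 1, PO 3 or PO 5 (adjusted p = 0.0512 to 0.0626). The higher neuropeptide count was 3 to 12 on leaving out one at a time of LD 3, PO 1, PO 3 and PO 5. The higher exocytosis count was 1 to 7 on leaving out one at a time of LD 1, LD 3, PO 2 and PO 5.

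Guidance cues steer cells and vessels as well as axons. Of 42 guidance genes tested, 4 (9.52%) were called higher and 5 (11.9%) lower at PO, and 5 and 6 without LD 3 and PO 2. The shares over all features were 6.86% and 10.7%, and the list median was −0.31 against 0.45 in TW. EPHA4, an ephrin receptor, ran from −4.08 to 0.64 at LD and from 0.43 to 2.80 at PO and rose by 3.51 ± 0.86 (SE, adjusted p = 0.0148). SEMA7A, a membrane-anchored semaphorin, rose by 2.70 ± 0.51 (SE, adjusted p = 0.00612), with −5.73 to −3.49 at LD and −2.76 to −1.25 at PO. NRP1, a co-receptor for semaphorins and vascular endothelial growth factor, ran from −5.66 to −1.59 at LD and from −0.97 to 0.06 at PO and rose by 2.91 ± 0.64 (SE, adjusted p = 0.0103). SEMA7A and NRP1 did not overlap between the stages, and EPHA4 did, with LD 3 the LD array nearest to PO for EPHA4. Among secreted semaphorins, SEMA3C stood at 2.34, 2.02, 1.83, 2.82 and 1.70 on the LD arrays and −0.73, 1.73, 0.20, −1.03 and 0.17 on the PO arrays. PO 2 lay beside the LD arrays and the other PO arrays below them, and the change was −2.07 ± 0.46 (SE, adjusted p = 0.0115). SEMA3E, a relative of SEMA3C, fell by 2.86 ± 0.65 (SE, adjusted p = 0.0117), with −4.40 to −0.12 at LD and −6.29 to −4.42 at PO. SEMA3E did not overlap between the stages. The higher guidance count was 2 without PO 5. The lower guidance count was 2 on leaving out one at a time of LD 4, LD 5, PO 1, PO 3 and PO 5.

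Several secreted and receptor genes of vessels and blood cells rose as well. ADM, the vasodilator adrenomedullin, ran from −3.07 to 3.36 at LD and from 2.84 to 4.56 at PO and rose by 3.39 ± 0.86 (SE, adjusted p = 0.0175). RAMP1, a partner of peptide receptors, rose by 3.24 ± 0.63 (SE, adjusted p = 0.00661), with −9.21 to −5.67 at LD and −5.24 to −3.28 at PO. CXCR4, the receptor of a homing chemokine, ran from −5.08 to 2.70 at LD and from 2.55 to 3.26 at PO and rose by 4.25 ± 1.05 (SE, adjusted p = 0.016). RAMP1 did not overlap between the stages, and ADM and CXCR4 did, with LD 3 the LD array nearest to PO for ADM and CXCR4. CFB, complement factor B, rose by 3.04 ± 0.72 (SE, adjusted p = 0.0133), with −8.95 to −3.99 at LD and −4.62 to −2.19 at PO. NRG2, an ErbB ligand, ran from −9.62 to −6.15 at LD and from −6.46 to −3.89 at PO and rose by 3.47 ± 0.62 (SE, adjusted p = 0.00569). CFB and NRG2 overlapped between the stages, with LD 3 the LD array nearest to PO for CFB and NRG2. CXCR4 lay within the PO range on LD 3, and without LD 3 and PO 2 its change was 5.35. Of 23 angiogenic genes tested, 6 (26.1%) were called higher and 1 (4.35%) lower at PO, and 7 and 2 without LD 3 and PO 2, with a median of 0.69. Among all features 6.86% were called higher and 10.7% lower. NRG2 was well above background in 1 of 5 arrays at LD, RAMP1 in 2 of 5 arrays at LD and CFB in 3 of 5 arrays at LD, so these sizes are not exact. NRG2 (now 0.51), RAMP1 (now 0.75) and CFB (now 0.87) missed the threshold with normexp background correction (adjusted p = 0.12 to 0.36). CXCR4, ADM and CFB missed the threshold in a fit of the 10 LD and PO arrays alone (adjusted p = 0.0512 to 0.054). The higher angiogenic count was 3 to 10 on leaving out one at a time of LD 3, LD 5, PO 1, PO 3 and PO 5.

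The best known ovulatory genes were less uniform. PTGS2, the inducible prostaglandin synthase, stood at −0.41, −0.23, −1.15, −1.05 and −1.27 on the LD arrays and 4.42, −1.55, 4.23, 3.92 and 4.41 on the PO arrays. 4 PO arrays were high, and PO 2 lay below all LD arrays. Its change was 3.91 ± 0.89 (SE, adjusted p = 0.0115), and 4.99 without LD 3 and PO 2. RGS2, a regulator of G protein signalling, rose by 3.74 ± 0.95 (SE, adjusted p = 0.0175), with −3.69 to 1.99 at LD and 0.79 to 4.03 at PO. IER3, an immediate early gene, ran from −5.87 to −0.16 at LD and from −0.17 to 1.96 at PO and rose by 4.04 ± 0.94 (SE, adjusted p = 0.0127). NR4A1, an immediate early nuclear receptor, rose by 2.44 ± 0.61 (SE, adjusted p = 0.0165), with −2.52 to 0.88 at LD and −0.13 to 2.79 at PO. RGS2, IER3 and NR4A1 overlapped between the stages, with LD 3 the LD array nearest to PO for IER3. Of 31 genes of the ovulatory cascade tested, 7 (22.6%) were called higher and 1 (3.23%) lower at PO, and 9 and 2 without LD 3 and PO 2, with a median of 0.86. Over all features the shares were 6.86% and 10.7%. Hyaluronan genes of cumulus expansion were not called. HAS2, the hyaluronan synthase, stood at 4.35, 0.43, −0.45, −2.41 and −9.50 on the LD arrays and 0.90, −0.49, 1.05, −0.41 and 2.04 on the PO arrays. TNFAIP6, which links hyaluronan to its heavy chains, stood at 3.79, −0.81, 0.11, −1.08 and −6.57 on the LD arrays and −2.46, 0.55, −1.45, −1.10 and −1.80 on the PO arrays. LD 1 was the highest of the 10 arrays for both. Their changes were 2.13 ± 1.73 (SE, adjusted p = 0.408) and −0.34 ± 1.61 (SE, adjusted p = 0.907). PTX3, a pentraxin of the same matrix, changed by 2.21 ± 1.37 (SE, adjusted p = 0.267) and was not called, but was with array weights (3.23, adjusted p = 0.0402). The epidermal growth factor-like ligands EREG and AREG, not called either, changed by 1.34 ± 1.58 (SE, adjusted p = 0.588) and 0.16 ± 1.39 (SE, adjusted p = 0.95), and the signs of AREG and TNFAIP6 turned under some settings. IER3, NR4A1, PTGS2 and RGS2 missed the threshold in a fit of the 10 LD and PO arrays alone (adjusted p = 0.0503 to 0.0562). RGS2 missed it without LD 4 (adjusted p = 0.0521). The higher ovulatory count was 3 to 4 on leaving out one at a time of LD 4, PO 3 and PO 5.

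Among matrix genes, VCAN and ITIH4 fell. VCAN, the proteoglycan versican that binds hyaluronan, stood at 5.43, 3.56, 1.51, 4.85 and 4.36 on the LD arrays and 0.83, 1.39, 0.91, 2.40 and 0.88 on the PO arrays. LD 3 lay within the PO range, and the change was −2.66 ± 0.57 (SE, adjusted p = 0.00917). ITIH4, a relative of the hyaluronan heavy chains, ran from −4.42 to −2.07 at LD and from −6.72 to −4.58 at PO and fell by 2.43 ± 0.49 (SE, adjusted p = 0.0074). ADAMTS6, a secreted metalloprotease, fell by 3.04 ± 0.74 (SE, adjusted p = 0.0148), with −4.58 to −0.66 at LD and −7.57 to −3.96 at PO. ADAMTS8, another protease of that family, ran from −4.03 to −1.75 at LD and from −2.52 to 2.01 at PO and rose by 3.07 ± 0.71 (SE, adjusted p = 0.0123). ITIH4 did not overlap between the stages, and ADAMTS6 and ADAMTS8 did, with LD 3 the LD array nearest to PO for ADAMTS8. Of 43 genes of the hyaluronan and proteoglycan matrix tested, 0 (0%) were called higher and 4 (9.3%) lower at PO (4 higher at an unadjusted p under 0.05), and 5 and 10 without LD 3 and PO 2. The falls are near the share of all features (10.7%). Of 38 matrix proteases and inhibitors tested, 3 (7.89%) were called higher and 1 (2.63%) lower at PO, and 7 and 3 without LD 3 and PO 2, with a median of 0.23. Their share of rises is near that of all features (6.86%). ADAMTS6 was well above background in 3 of 5 arrays at PO, so the size is not exact. ADAMTS6 (now −1.17) missed the threshold with normexp background correction (adjusted p = 0.0571). ADAMTS6 missed the threshold in a fit of the 10 LD and PO arrays alone (adjusted p = 0.052). The lower hyaluronan count was 2 to 10 on leaving out one at a time of LD 1, LD 3, LD 4, PO 1, PO 3 and PO 5. Without LD 3 the count of protease and inhibitor genes called higher was 7.

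In the steroid group HSD11B1, SULT2A1 and TSPO rose and the dehydrogenase genes HSD17B1 and HSD17B6 fell, while STAR, CYP11A1 and CYP19A1 were not called. HSD11B1, which regenerates cortisol from cortisone, stood at −8.24, −2.42, −1.61, −7.82 and −9.55 on the LD arrays and −1.44, −1.82, 0.44, −0.15 and −1.47 on the PO arrays. LD 2 and LD 3 lay near the PO arrays and the other LD arrays far below, and the change was 5.04 ± 1.26 (SE, adjusted p = 0.0164). SULT2A1, a sulfotransferase of hydroxysteroids, rose by 3.88 ± 0.89 (SE, adjusted p = 0.0117), with −9.43 to −3.23 at LD and −4.35 to −3.09 at PO. TSPO, an outer mitochondrial membrane protein that binds cholesterol, ran from −0.35 to 1.87 at LD and from 1.64 to 2.68 at PO and rose by 1.73 ± 0.39 (SE, adjusted p = 0.0109). RDH12, a retinal reductase, rose by 4.60 ± 1.14 (SE, adjusted p = 0.0158), with −6.14 to −2.36 at LD and −5.69 to 1.64 at PO. SULT2A1, TSPO and RDH12 overlapped between the stages, with LD 3 the LD array nearest to PO for SULT2A1 and TSPO. HSD17B1, which makes estradiol from estrone, ran from −6.27 to 2.52 at LD and from −6.91 to −4.90 at PO and fell by 4.43 ± 1.40 (SE, adjusted p = 0.0413). HSD17B6, a dehydrogenase of hydroxysteroids, fell by 1.30 ± 0.36 (SE, adjusted p = 0.0241), with −5.55 to −3.16 at LD and −5.63 to −4.72 at PO. HSD17B1 and HSD17B6 overlapped between the stages, with LD 3 the LD array nearest to PO for HSD17B1. STAR, which delivers cholesterol, changed by 1.34 ± 1.06 (SE, adjusted p = 0.394), and CYP11A1, which cleaves its side chain, by 1.27 ± 0.67 (SE, adjusted p = 0.19). CYP11A1 was called higher without LD 3 (1.87, adjusted p = 0.0211) and without LD 3 and PO 2 (1.57, adjusted p = 0.0428). CYP19A1, the aromatase, changed by 0.06 ± 0.65 (SE, adjusted p = 0.961), and its sign turned under some settings. Of 30 genes of steroid synthesis and metabolism tested, 4 (13.3%) were called higher and 3 (10%) lower at PO, and 5 and 4 without LD 3 and PO 2, with a median of 0.25. Over all features these shares were 6.86% and 10.7%, so the falls are near the common share. Of the 17 granulosa markers, 4 were lower and 0 higher (0 higher at an unadjusted p under 0.05). SULT2A1 was well above background in 1 of 5 arrays at LD, HSD11B1 in 2 of 5 arrays at LD and RDH12 in 4 of 5 arrays at LD. HSD17B1 had such signals in 3 of 5 arrays at PO, so these sizes are not exact. SULT2A1 (now 0.68), HSD17B1 (now −2.59) and HSD17B6 (now −0.76) missed the threshold with normexp background correction (adjusted p = 0.0709 to 0.237). HSD11B1, RDH12, HSD17B1 and HSD17B6 missed the threshold in a fit of the 10 LD and PO arrays alone (adjusted p = 0.0577 to 0.0973). HSD17B1 missed the threshold in the deposited value table, with quantile normalization, with slide as a fixed block or with no filter on dim probes (adjusted p = 0.0506 to 0.06). HSD17B6 missed the threshold with the mean of all probes (adjusted p = 0.0849). HSD17B1 missed it without LD 1, LD 4, LD 5, PO 1, PO 3, PO 4 or PO 5 (adjusted p = 0.0613 to 0.112). HSD17B6 missed it without LD 1, LD 4, LD 5, PO 3 or PO 5 (adjusted p = 0.0506 to 0.0651). The higher steroid count was 7 without LD 3. The lower steroid count was 0 to 1 on leaving out one at a time of LD 1, LD 4, LD 5, PO 3, PO 4 and PO 5. The granulosa marker count was 1 to 7 on leaving out one at a time of LD 1, LD 3, LD 4, LD 5, PO 1, PO 3, PO 4 and PO 5.

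Several receptors for steroids and growth hormone fell. NR3C2, the mineralocorticoid receptor, stood at −0.87, −4.03, −7.14, −0.76 and −1.29 on the LD arrays and −7.25, −6.71, −6.48, −5.26 and −8.11 on the PO arrays. NR3C1, the glucocorticoid receptor, stood at −1.10, 0.59, −1.29, −0.41 and −0.43 on the LD arrays and −2.59, −1.43, −2.14, −2.62 and −2.28 on the PO arrays. NR3C1 did not overlap between the stages, whereas for NR3C2 LD 3 lay inside the PO range. The changes were −3.94 ± 0.99 (SE, adjusted p = 0.0165) for NR3C2 and −1.68 ± 0.37 (SE, adjusted p = 0.00979) for NR3C1. GHR, the growth hormone receptor, ran from −0.95 to 1.27 at LD and from −2.53 to −0.98 at PO and fell by 2.00 ± 0.50 (SE, adjusted p = 0.0159). PAQR8, a membrane progestin receptor, fell by 1.94 ± 0.46 (SE, adjusted p = 0.0136), with −3.66 to −0.88 at LD and −4.88 to −3.44 at PO. GHR did not overlap between the stages, and PAQR8 did. LHCGR, the luteinizing hormone receptor, was not called and changed by −0.29 ± 0.69 (SE, adjusted p = 0.808), a sign that turned under another setting. Of 21 hormone receptor genes tested, 0 (0%) were called higher and 5 (23.8%) lower at PO (1 higher at an unadjusted p under 0.05), and 1 and 6 without LD 3 and PO 2, with a median of −0.33. Over all features these shares were 6.86% and 10.7%. NR3C2 was well above background in 4 of 5 arrays at LD and NR3C2 in 2 of 5 arrays at PO, so these sizes are not exact. NR3C2 and PAQR8 missed the threshold in a fit of the 10 LD and PO arrays alone (adjusted p = 0.0529 to 0.06).

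More genes of cholesterol synthesis and uptake rose than fell. MVK, the mevalonate kinase, ran from −2.71 to −0.11 at LD and from −0.84 to 0.05 at PO and rose by 1.73 ± 0.44 (SE, adjusted p = 0.0173). NSDHL, a sterol dehydrogenase, rose by 1.49 ± 0.35 (SE, adjusted p = 0.0123), with 1.30 to 3.06 at LD and 3.13 to 3.88 at PO. TM7SF2, a sterol reductase, ran from −1.13 to 2.44 at LD and from 2.03 to 2.88 at PO and rose by 2.20 ± 0.56 (SE, adjusted p = 0.0176). NSDHL did not overlap between the stages, and MVK and TM7SF2 did, with LD 3 the LD array nearest to PO for MVK and TM7SF2. LBR, which carries the same reductase activity as TM7SF2 in the nuclear envelope, fell by 1.88 ± 0.42 (SE, adjusted p = 0.0107), with −2.65 to −0.51 at LD and −4.37 to −2.85 at PO. LCAT, which esterifies cholesterol, ran from −0.93 to 0.41 at LD and from −3.56 to −1.43 at PO and fell by 2.00 ± 0.42 (SE, adjusted p = 0.00866). LBR and LCAT did not overlap between the stages. Of 42 cholesterol genes tested, 7 (16.7%) were called higher and 2 (4.76%) lower at PO, and 12 and 5 without LD 3 and PO 2, with a median of 0.50. Among all features 6.86% were called higher and 10.7% lower. SLC25A1, the mitochondrial carrier that exports citrate for lipid synthesis, stood at 2.28, 1.70, 3.66, 2.75 and 2.04 on the LD arrays and 4.78, 3.75, 4.35, 4.61 and 4.46 on the PO arrays. LD 3 lay just under PO 2, the stages did not overlap, and the change was 1.90 ± 0.33 (SE, adjusted p = 0.00569). HLCS, which attaches biotin to carboxylases, rose by 1.85 ± 0.33 (SE, adjusted p = 0.00569), with −2.10 to −1.03 at LD and −0.75 to 0.98 at PO. ELOVL5, an elongase of polyunsaturated fatty acids, ran from −2.03 to 0.13 at LD and from 0.05 to 0.95 at PO and rose by 1.45 ± 0.35 (SE, adjusted p = 0.0149). HLCS did not overlap between the stages, and ELOVL5 did. Of 50 genes of fatty acid and glycerolipid synthesis tested, 10 (20%) were called higher and 2 (4%) lower at PO, and 14 and 3 without LD 3 and PO 2, with a median of 0.45. TM7SF2, MVK and ELOVL5 missed the threshold in a fit of the 10 LD and PO arrays alone (adjusted p = 0.0519 to 0.0552). The higher cholesterol count was 4 to 17 on leaving out one at a time of LD 3 and LD 4. The higher fatty acid count was 3 to 5 on leaving out one at a time of LD 1, LD 4, LD 5, PO 1, PO 3 and PO 5.

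Among genes of energy metabolism and precursor synthesis, calls were nearly all rises. For comparison, 6.86% of all features were called higher and 10.7% lower. PGAM1, a glycolytic mutase, stood at 3.02, 4.24, 4.84, 2.94 and 2.11 on the LD arrays and 5.48, 5.12, 5.29, 5.38 and 5.47 on the PO arrays. The stages did not overlap, and it changed by 1.92 ± 0.42 (SE, adjusted p = 0.0107). OGDH, a subunit of the oxoglutarate dehydrogenase of the tricarboxylic acid cycle, rose by 1.51 ± 0.34 (SE, adjusted p = 0.0111), with −1.68 to 0.02 at LD and −0.24 to 1.07 at PO. ME2, the mitochondrial malic enzyme, ran from 1.59 to 2.75 at LD and from 2.42 to 3.59 at PO and rose by 1.23 ± 0.31 (SE, adjusted p = 0.016). OGDH and ME2 overlapped between the stages, with LD 3 the LD array nearest to PO for OGDH and ME2. SRM, the spermidine synthase, stood at 0.18, 0.57, 1.08, −0.42 and −0.65 on the LD arrays and 2.65, 1.09, 2.43, 2.47 and 2.63 on the PO arrays. PO 2 was level with LD 3, and the change was 2.10 ± 0.37 (SE, adjusted p = 0.00569). Of 39 antioxidant and glutathione genes tested, 5 (12.8%) were called higher and 2 (5.13%) lower at PO, and 9 and 4 without LD 3 and PO 2, with a median of 0.29 and 29 of them above 0. GCLC, the catalytic subunit of the first step of its synthesis, fell by 2.04 ± 0.52 (SE, adjusted p = 0.017), with 2.17 to 3.59 at LD and −0.10 to 2.73 at PO. MGST2, a membrane glutathione transferase, ran from −1.48 to 0.79 at LD and from 0.87 to 1.64 at PO and rose by 1.65 ± 0.43 (SE, adjusted p = 0.0185). MGST2 did not overlap between the stages, and GCLC did. GPX1, a glutathione peroxidase, rose by 0.93 ± 0.29 (SE, adjusted p = 0.0391), with 1.57 to 2.85 at LD and 2.82 to 3.38 at PO. GPX3, a secreted glutathione peroxidase, ran from −4.30 to 0.65 at LD and from 0.27 to 2.93 at PO and rose by 2.89 ± 0.96 (SE, adjusted p = 0.0495). GPX1 and GPX3 overlapped between the stages, with LD 3 the LD array nearest to PO for GPX3. Of 30 glycolytic genes tested, 5 (16.7%) were called higher and 0 (0%) lower at PO (0 lower at an unadjusted p under 0.05), and 14 and 0 without LD 3 and PO 2, with a median of 0.94. Of 25 genes of the tricarboxylic acid cycle tested, 4 (16%) were called higher and 0 (0%) lower at PO (0 lower at an unadjusted p under 0.05), and 12 and 0 without LD 3 and PO 2, with a median of 0.60. Of 45 genes of serine, one-carbon, polyamine and nucleotide synthesis tested, 9 (20%) were called higher and 1 (2.22%) lower at PO, and 14 and 4 without LD 3 and PO 2, with a median of 0.46. Of 53 respiratory chain genes tested, 8 (15.1%) were called higher and 0 (0%) lower at PO (0 lower at an unadjusted p under 0.05), and 16 and 0 without LD 3 and PO 2, with a median of 0.42 in GC and −0.45 in TW. GCLC, GPX1 and GPX3 missed the threshold in a fit of the 10 LD and PO arrays alone (adjusted p = 0.054 to 0.105). GPX1 missed the threshold in the deposited value table (adjusted p = 0.131). GPX3 missed the threshold with the mean of all probes or with slide as a fixed block (adjusted p = 0.0548 to 0.0635). GPX1 and GPX3 missed the threshold with quantile normalization or with no filter on dim probes (adjusted p = 0.0559 to 0.152). GPX1 missed it without LD 1, LD 2, LD 4, PO 1, PO 3 or PO 5 (adjusted p = 0.0738 to 0.103). GPX3 missed it without LD 1, LD 4, LD 5, PO 1, PO 2, PO 3, PO 4 or PO 5 (adjusted p = 0.0503 to 0.131). The higher glycolysis count was 1 to 15 on leaving out one at a time of LD 3, LD 4, LD 5, PO 1, PO 2, PO 3, PO 4 and PO 5. The higher tricarboxylic acid count was 2 to 12 on leaving out one at a time of LD 1, LD 3, LD 5, PO 1, PO 3 and PO 5. The higher serine and polyamine count was 1 to 4 on leaving out one at a time of LD 1, LD 4, LD 5, PO 1, PO 3, PO 4 and PO 5. The higher respiratory chain count was 0 to 18 on leaving out one at a time of LD 1, LD 2, LD 3, LD 4, LD 5, PO 1, PO 3 and PO 5. For the antioxidant list it was 1 to 9 without 1 of LD 1, LD 3, LD 4, LD 5, PO 1, PO 3, PO 4 and PO 5.

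Genes of ribosome assembly were called in 1 direction, while no cytosolic ribosomal protein gene was called. Of 61 ribosome biogenesis genes tested, 13 (21.3%) were called higher and 0 (0%) lower at PO (0 lower at an unadjusted p under 0.05), and 33 and 0 without LD 3 and PO 2, with a median of 0.66. Among all features 6.86% were called higher and 10.7% lower. DDX56, a nucleolar helicase, rose by 1.18 ± 0.27 (SE, adjusted p = 0.0125), with −1.73 to −0.46 at LD and −0.29 to 0.52 at PO. NOLC1, a nucleolar phosphoprotein, ran from −1.32 to 0.40 at LD and from 0.56 to 1.45 at PO and rose by 1.33 ± 0.35 (SE, adjusted p = 0.0217). DKC1, the pseudouridine synthase dyskerin, rose by 1.24 ± 0.33 (SE, adjusted p = 0.0202), with 0.94 to 2.71 at LD and 2.81 to 3.18 at PO. DDX56, NOLC1 and DKC1 did not overlap between the stages. Of 69 cytosolic ribosomal protein genes, limma called 0 (0 higher and 0 lower at an unadjusted p under 0.05). Their changes ran from −0.30 to 0.31, with a median of 0.04. Of chaperones, most calls were rises. Of 47 heat shock and cochaperone genes tested, 10 (21.3%) were called higher and 1 (2.13%) lower at PO, and 18 and 4 without LD 3 and PO 2, with a median of 0.57. DNAJA3, a mitochondrial cochaperone, ran from −1.42 to 1.07 at LD and from 1.22 to 1.77 at PO and rose by 1.78 ± 0.41 (SE, adjusted p = 0.0124). CCT4, a subunit of the cytosolic chaperonin, rose by 0.87 ± 0.22 (SE, adjusted p = 0.0161), with 3.37 to 4.41 at LD and 4.38 to 4.90 at PO. DNAJA3 did not overlap between the stages, and CCT4 did, with LD 3 the LD array nearest to PO for CCT4. BAG2, an inhibitor of a chaperone-linked ubiquitin ligase, ran from −1.39 to 0.36 at LD and from −2.21 to −1.18 at PO and fell by 1.44 ± 0.32 (SE, adjusted p = 0.0111). PSMG2, an assembly chaperone of the proteasome, fell by 1.09 ± 0.27 (SE, adjusted p = 0.0159), with 0.60 to 1.76 at LD and −0.45 to 0.49 at PO. PSMG2 did not overlap between the stages, and BAG2 did. PSMG2 was the only called fall of the proteasome list. Of 42 proteasome genes tested, 3 (7.14%) were called higher and 1 (2.38%) lower at PO, and 8 and 1 without LD 3 and PO 2, with a median of 0.33 and 36 above 0. The share of called rises is near that of all features (6.86%). NOLC1, DKC1, CCT4 and PSMG2 missed the threshold in a fit of the 10 LD and PO arrays alone (adjusted p = 0.0569 to 0.0607). NOLC1 missed it without LD 4, LD 5, PO 3 or PO 5 (adjusted p = 0.0534 to 0.0604). DKC1 missed it without LD 4, LD 5 or PO 5 (adjusted p = 0.0517 to 0.0598). The higher ribosome biogenesis count was 1 to 32 on leaving out one at a time of LD 3, LD 4, LD 5, PO 3 and PO 5. The higher chaperone count was 2 to 17 on leaving out one at a time of LD 1, LD 3, LD 4, LD 5, PO 1, PO 3 and PO 5. For the proteasome list it was 0 to 8 on leaving out any single array but LD 2.

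Of the 34 lists drawn in the plot of list members, clock genes had the highest median, 1.07. Over the 5 scalings the clock median fell as low as 0.54, where the glycolysis list, never under 0.57, lay above it. Of 19 circadian genes tested, 5 (26.3%) were called higher and 0 (0%) lower at PO (2 lower at an unadjusted p under 0.05), and 7 and 2 without LD 3 and PO 2. Over all features the shares were 6.86% and 10.7%. NPAS2, which pairs with BMAL1 in place of CLOCK, stood at −8.11, −4.96, −6.37, −8.06 and −7.21 on the LD arrays and −3.10, −5.89, −3.36, −2.04 and −3.14 on the PO arrays. 4 PO arrays lay above all LD arrays and PO 2 lay inside their range, and the change was 3.43 ± 0.66 (SE, adjusted p = 0.00634). RORA, a nuclear receptor that drives BMAL1 transcription, stood at −4.48, −2.64, −2.84, −5.12 and −4.99 on the LD arrays and −0.27, −2.69, −1.14, −1.67 and −1.02 on the PO arrays. PO 2 lay at the level of LD 2 and LD 3, and the change was 2.65 ± 0.70 (SE, adjusted p = 0.0201). NR2F6, an orphan nuclear receptor outside this list, ran from −3.56 to −1.97 at LD and from −2.16 to −0.93 at PO and rose by 1.48 ± 0.31 (SE, adjusted p = 0.00834). NR2F6 overlapped between the stages, with LD 3 the LD array nearest to PO for this gene. The labels do not give the time of day of sampling. NPAS2 was well above background in 2 of 5 arrays at LD, so the size is not exact. NPAS2 (now 0.87) missed the threshold with normexp background correction (adjusted p = 0.122). RORA missed it without LD 4 or LD 5 (adjusted p = 0.0557 to 0.0589). The higher circadian count was 1 to 2 on leaving out one at a time of LD 4, LD 5, PO 1, PO 3 and PO 5.

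**Figure D3:**
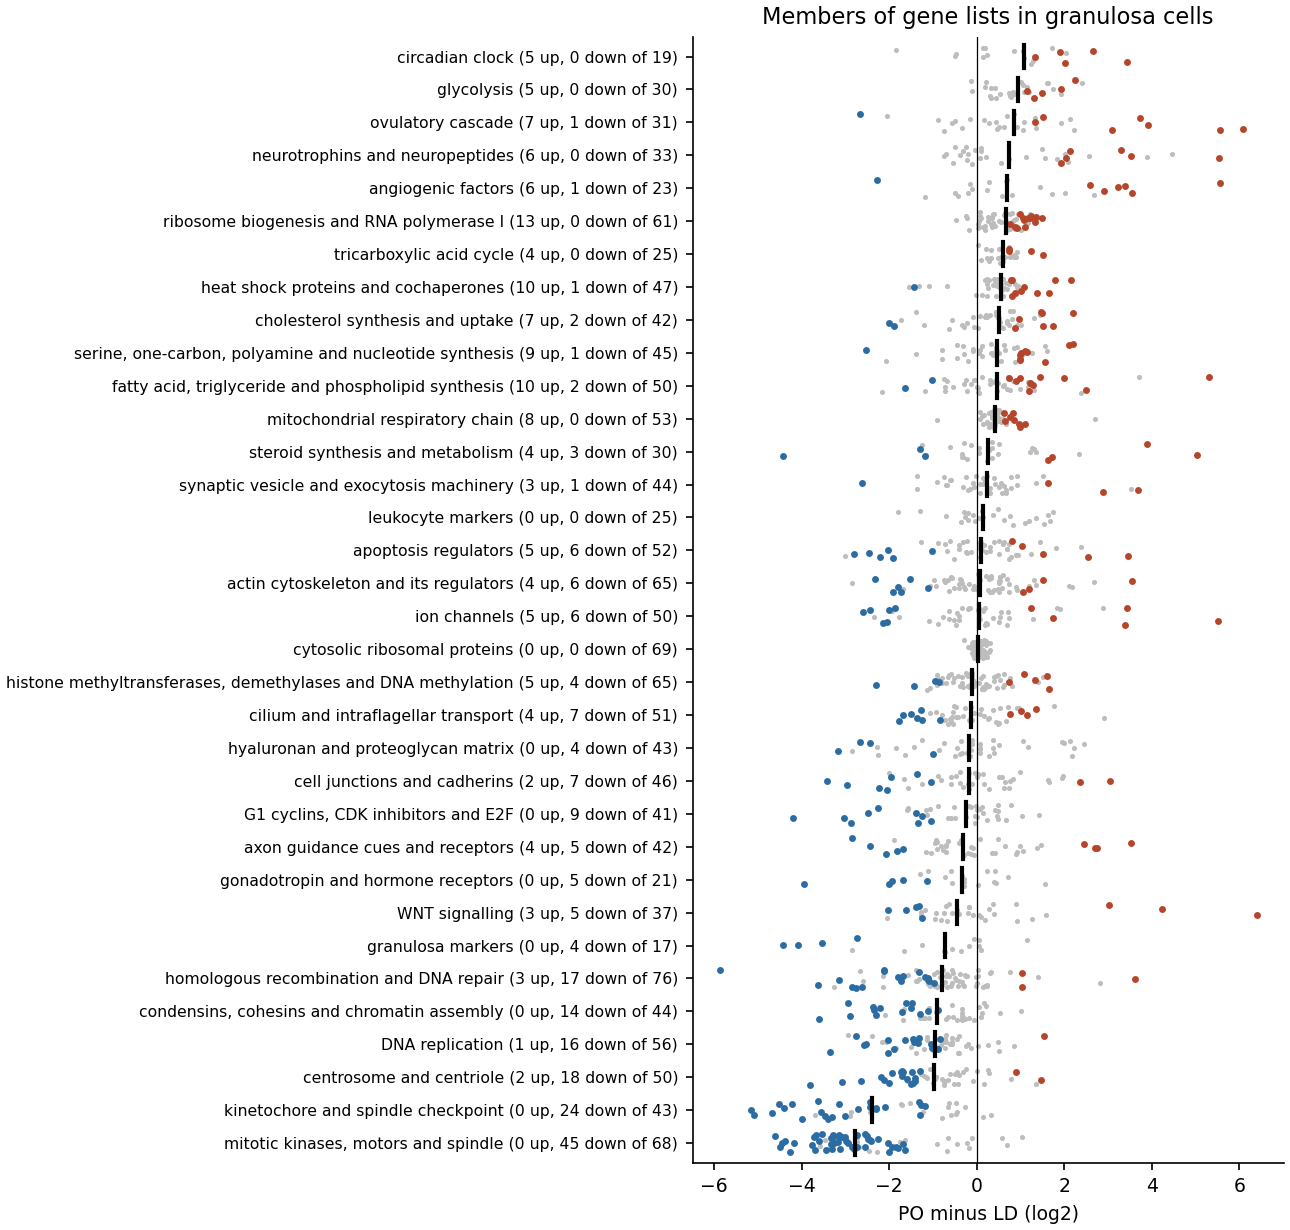
Change from late dominant to preovulatory (log2, x axis) of every tested member of 34 gene lists, 1 point per gene, red and blue for called rises and falls, with a black bar at the list median. The medians run from −2.77 for mitotic kinases, motors and spindle to 1.07 for the circadian clock.

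Most genes of the mitotic apparatus fell. Of 68 mitotic kinase, motor and spindle genes tested, 0 (0%) were called higher and 45 (66.2%) lower at PO (1 higher at an unadjusted p under 0.05), and 1 and 57 without LD 3 and PO 2, with a median of −2.77. Of 43 kinetochore genes tested, 0 (0%) were called higher and 24 (55.8%) lower at PO (0 higher at an unadjusted p under 0.05), and 0 and 33 without LD 3 and PO 2, with a median of −2.40. Among all features 6.86% were called higher and 10.7% lower. TOP2A, the topoisomerase that untangles chromosomes, stood at 0.13, −1.76, −5.01, 1.56 and 1.83 on the LD arrays and −5.56, −5.35, −5.27, −4.37 and −5.76 on the PO arrays. LD 4 and LD 5 were highest, LD 1 and LD 2 between, and LD 3 lay among the PO arrays. The change was −4.61 ± 0.96 (SE, adjusted p = 0.00834), and −5.68 without LD 3 and PO 2. TTK, a kinase of the spindle checkpoint, stood at −2.34, −3.46, −4.98, 0.15 and 0.82 on the LD arrays and −6.26, −5.29, −6.82, −6.16 and −7.35 on the PO arrays. The stages did not overlap, and the change was −4.42 ± 0.87 (SE, adjusted p = 0.00686). SGO2, a protector of cohesion, fell by 4.69 ± 0.75 (SE, adjusted p = 0.00544), with −5.29 to −0.45 at LD and −8.57 to −6.40 at PO. KIF20B, a kinesin, ran from −3.29 to 0.89 at LD and from −4.95 to −4.11 at PO and fell by 3.54 ± 0.61 (SE, adjusted p = 0.00567). PLK4, a centriole kinase, fell by 3.08 ± 0.59 (SE, adjusted p = 0.0064), with −3.60 to 0.27 at LD and −5.01 to −3.70 at PO. SGO2, KIF20B and PLK4 did not overlap between the stages. CENPQ, a centromere protein, ran from −3.73 to −0.75 at LD and from −5.22 to −3.96 at PO and fell by 2.44 ± 0.44 (SE, adjusted p = 0.00569). CENPF, a kinetochore protein, fell by 5.15 ± 1.23 (SE, adjusted p = 0.0139), with −8.94 to −0.03 at LD and −9.36 to −7.54 at PO. CENPQ did not overlap between the stages, and CENPF did, with LD 3 the LD array nearest to PO for CENPF. The kinetochore list as a whole had the order of LD arrays seen for TOP2A. Its median relative to the LD mean was 0.12, −0.64, −2.55, 1.28 and 1.95 on the LD arrays and −2.57, −2.20, −2.52, −1.47 and −2.33 on the PO arrays, so that LD 3 lay at the PO level. CENPF was well above background in 4 of 5 arrays at LD, SGO2 in 1 of 5 arrays at PO and TTK in 3 of 5 arrays at PO, so these sizes are not exact. CENPF was not well above background on any PO array and was at least 10.8-fold lower at PO. The lower mitotic count was 16 to 29 on leaving out one at a time of LD 1, LD 4, LD 5, PO 1, PO 3 and PO 5. The lower kinetochore count was 11 to 14 on leaving out one at a time of LD 4, LD 5 and PO 5.

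Replication and chromosome structure genes had medians nearer to 0. Of 56 DNA replication genes tested, 1 (1.79%) was called higher and 16 (28.6%) lower at PO, and 1 and 31 without LD 3 and PO 2, with a median of −0.97. Of 44 condensin, cohesin and chromatin assembly genes tested, 0 (0%) were called higher and 14 (31.8%) lower at PO (0 higher at an unadjusted p under 0.05), and 0 and 21 without LD 3 and PO 2, with a median of −0.90. Over all features the shares were 6.86% and 10.7%. RFC3, a clamp loader subunit, ran from 1.54 to 3.48 at LD and from −0.40 to 1.46 at PO and fell by 1.89 ± 0.40 (SE, adjusted p = 0.00909). ORC3, a subunit of the origin recognition complex, fell by 2.03 ± 0.42 (SE, adjusted p = 0.00821), with −1.98 to 0.24 at LD and −3.45 to −1.35 at PO. CDC7, a replication kinase, ran from −3.62 to −2.02 at LD and from −6.06 to −3.37 at PO and fell by 2.04 ± 0.42 (SE, adjusted p = 0.00811). RFC3 did not overlap between the stages, and ORC3 and CDC7 did, with LD 3 the LD array nearest to PO for ORC3 and CDC7. SMC4, a condensin subunit, fell by 2.35 ± 0.45 (SE, adjusted p = 0.00612), with 0.57 to 2.89 at LD and −1.75 to −0.12 at PO. HELLS, a chromatin remodeller, ran from −2.61 to 1.25 at LD and from −3.93 to −2.87 at PO and fell by 2.89 ± 0.60 (SE, adjusted p = 0.0084). EZH2, a histone methyltransferase, fell by 2.31 ± 0.49 (SE, adjusted p = 0.00909), with −0.91 to 1.77 at LD and −2.30 to −0.75 at PO. SMC4 and HELLS did not overlap between the stages, and EZH2 did, with LD 3 the LD array nearest to PO for EZH2. Of 41 genes of G1 cyclins, their inhibitors and E2F tested, 0 (0%) were called higher and 9 (22%) lower at PO (1 higher at an unadjusted p under 0.05), and 1 and 17 without LD 3 and PO 2, with a median of −0.24. E2F8, a repressor of the E2F family, ran from −6.50 to −0.87 at LD and from −8.39 to −6.54 at PO and fell by 4.20 ± 0.93 (SE, adjusted p = 0.0104). RBL1, a pocket protein, fell by 2.25 ± 0.43 (SE, adjusted p = 0.00636), with −3.37 to −1.24 at LD and −5.33 to −3.44 at PO. LIN9, a subunit of the DREAM complex, ran from −1.97 to 1.00 at LD and from −3.12 to −2.03 at PO and fell by 2.49 ± 0.44 (SE, adjusted p = 0.00569). E2F8, RBL1 and LIN9 did not overlap between the stages. E2F8 was well above background in 4 of 5 arrays at LD, so the size is not exact. E2F8 was not well above background on any PO array and was at least 8.89-fold lower at PO. E2F8 (now −1.27) missed the threshold with normexp background correction (adjusted p = 0.0559). The lower replication count was 4 to 35 on leaving out one at a time of LD 3, LD 4, LD 5, PO 1, PO 3 and PO 5. The lower condensin count was 8 to 24 on leaving out one at a time of LD 3 and LD 4. The lower G1 count was 3 to 15 on leaving out one at a time of LD 3, LD 4, LD 5, PO 1, PO 3 and PO 5.

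Repair genes fell more often than they rose. Of 76 recombination and repair genes tested, 3 (3.95%) were called higher and 17 (22.4%) lower at PO, and 4 and 35 without LD 3 and PO 2, with a median of −0.79. Among all features 6.86% were called higher and 10.7% lower. FANCA, of the Fanconi core complex, fell by 2.61 ± 0.54 (SE, adjusted p = 0.00824), with −2.26 to −0.15 at LD and −5.02 to −2.74 at PO. RAD51AP1, a partner of the recombinase, ran from −2.74 to −0.91 at LD and from −4.38 to −3.09 at PO and fell by 1.74 ± 0.34 (SE, adjusted p = 0.00702). RAD50, a sensor of breaks, fell by 1.09 ± 0.24 (SE, adjusted p = 0.00993), with 0.15 to 0.93 at LD and −1.05 to −0.15 at PO. FANCA, RAD51AP1 and RAD50 did not overlap between the stages. WRN, described above, is a member that rose. Of 50 centrosome genes tested, 2 (4%) were called higher and 18 (36%) lower at PO, and 3 and 22 without LD 3 and PO 2, with a median of −0.98. CEP135, a centriole protein, ran from −4.38 to −2.84 at LD and from −8.38 to −5.37 at PO and fell by 2.66 ± 0.47 (SE, adjusted p = 0.00569). CEP170, of mature centrioles, fell by 1.42 ± 0.30 (SE, adjusted p = 0.00851), with −0.50 to 0.81 at LD and −1.92 to −0.60 at PO. CNTLN, a linker of centrosomes, ran from −2.64 to −0.11 at LD and from −3.41 to −3.14 at PO and fell by 2.20 ± 0.37 (SE, adjusted p = 0.00547). CEP135, CEP170 and CNTLN did not overlap between the stages. ALMS1, a basal body gene outside the list, fell by 2.03 ± 0.33 (SE, adjusted p = 0.00547), with −2.60 to −0.68 at LD and −3.61 to −3.01 at PO. CEP44, a centriole protein, ran from −1.88 to −0.40 at LD and from −0.50 to 1.20 at PO and rose by 1.48 ± 0.34 (SE, adjusted p = 0.0127). ALMS1 did not overlap between the stages, and CEP44 did. CEP135 was well above background in 4 of 5 arrays at PO, so the size is not exact. CEP44 missed the threshold in a fit of the 10 LD and PO arrays alone (adjusted p = 0.0524). The lower repair count was 8 to 29 on leaving out one at a time of LD 3, LD 4, LD 5, PO 1, PO 3 and PO 5. Its higher count was 1 to 5 on leaving out one at a time of LD 3, LD 4 and LD 5.

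**Figure D4:**
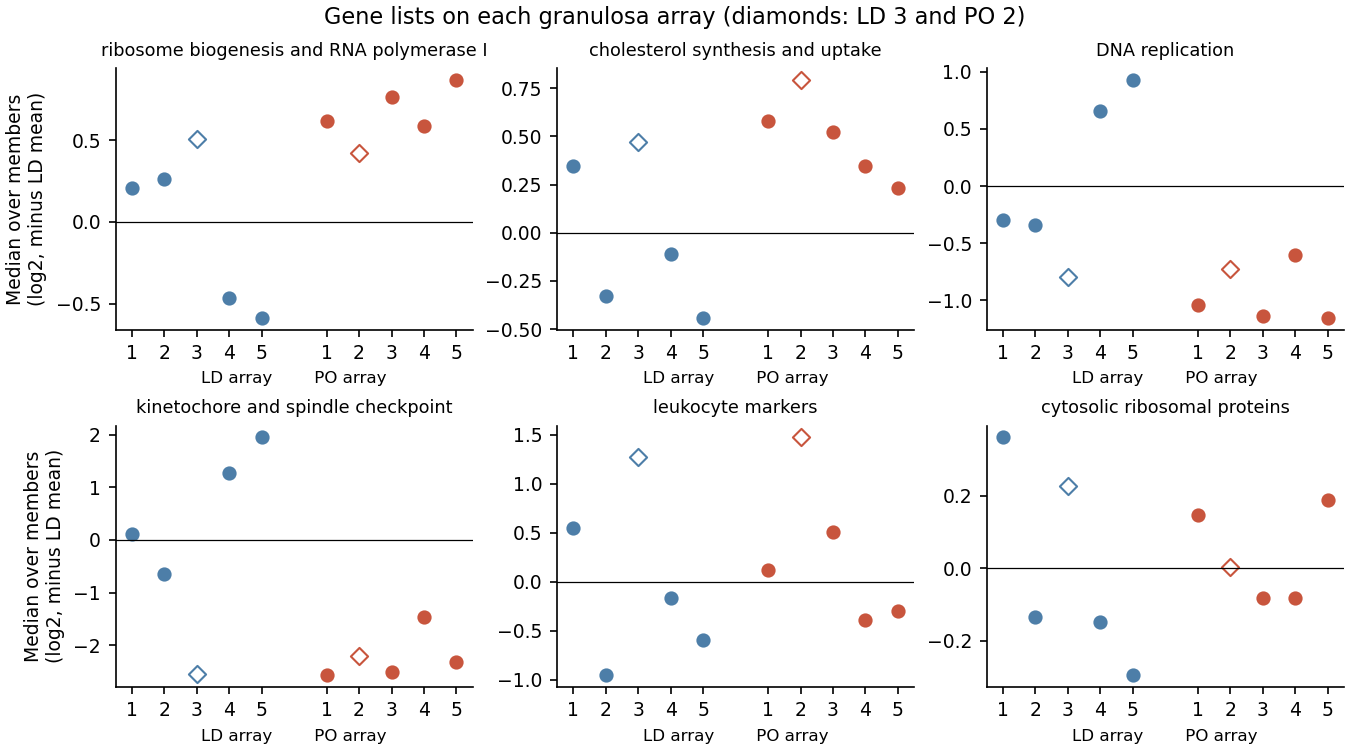
Median of 6 gene lists on each of the 10 arrays (log2, each gene relative to its mean over the late dominant arrays, y axis), blue for late dominant, red for preovulatory, open diamonds for LD 3 and PO 2. The kinetochore median is 1.95 on LD 5 and −2.55 on LD 3, and the leukocyte median is highest on LD 3 and PO 2 (1.27 and 1.47).

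OCLN, the membrane protein occludin, stood at −5.12, −5.03, −5.14, −4.11 and −2.19 on the LD arrays and −8.56, −5.94, −8.95, −5.66 and −9.59 on the PO arrays. PO lay below LD on every array, and the change was −3.42 ± 0.75 (SE, adjusted p = 0.01). TJP1, a scaffold partner of occludin, fell by 1.05 ± 0.23 (SE, adjusted p = 0.00962), with 1.15 to 2.09 at LD and 0.36 to 1.23 at PO. CLDN4, a claudin, ran from −7.26 to −2.68 at LD and from −4.57 to −1.34 at PO and rose by 3.06 ± 0.79 (SE, adjusted p = 0.0189). TJP1 and CLDN4 overlapped between the stages, with LD 3 the LD array nearest to PO for TJP1. Of 46 junction and cadherin genes tested, 2 (4.35%) were called higher and 7 (15.2%) lower at PO, and 7 and 10 without LD 3 and PO 2. Over all features these shares were 6.86% and 10.7%. The median was −0.18. In the cytoskeleton, ROCK2, MYH10 and DIAPH3 fell and RHOF and RHOU rose. ROCK2, a kinase of actomyosin contraction, fell by 1.73 ± 0.44 (SE, adjusted p = 0.0183), with −5.09 to −3.63 at LD and −7.65 to −5.14 at PO. MYH10, a non-muscle myosin, ran from −0.59 to 0.92 at LD and from −1.69 to −0.58 at PO and fell by 1.52 ± 0.35 (SE, adjusted p = 0.0123). DIAPH3, a formin, fell by 2.32 ± 0.49 (SE, adjusted p = 0.0086), with −3.31 to −0.30 at LD and −4.59 to −3.54 at PO. ROCK2 and DIAPH3 did not overlap between the stages, and MYH10 did. RHOF, which makes filopodia, ran from −9.04 to −5.81 at LD and from −5.58 to −2.21 at PO and rose by 3.56 ± 0.66 (SE, adjusted p = 0.00612). RHOU, an atypical small GTPase, rose by 1.51 ± 0.35 (SE, adjusted p = 0.0127), with −6.82 to −4.98 at LD and −4.95 to −4.46 at PO. RHOF and RHOU did not overlap between the stages. Of 65 genes of the actin cytoskeleton and its regulators tested, 4 (6.15%) were called higher and 6 (9.23%) lower at PO, and 13 and 9 without LD 3 and PO 2. These shares are near those of all features, and the median was 0.08. RHOF was well above background in 1 of 5 arrays at LD, CLDN4 and RHOU in 3 of 5 arrays at LD and OCLN in 2 of 5 arrays at PO. ROCK2 had such signals in 4 of 5 arrays at PO, so these sizes are not exact. OCLN (now −0.75), ROCK2 (now −0.44), RHOF (now 0.71) and RHOU (now 0.29) missed the threshold with normexp background correction (adjusted p = 0.0838 to 0.62). CLDN4 and ROCK2 missed the threshold in a fit of the 10 LD and PO arrays alone (adjusted p = 0.0574 to 0.0613). CLDN4 missed it without LD 4, LD 5 or PO 5 (adjusted p = 0.0526 to 0.0553). The lower junction count was 2 to 4 on leaving out one at a time of LD 1, LD 4, LD 5, PO 1, PO 3 and PO 5. The higher actin count was 2 to 14 on leaving out one at a time of LD 2, LD 3, LD 4, LD 5, PO 3 and PO 5. The lower actin count was 3 on leaving out one at a time of LD 1, LD 4, LD 5, PO 1 and PO 5.

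PKD2, the polycystin channel, ran from −3.31 to −1.64 at LD and from −4.17 to −3.58 at PO and fell by 1.51 ± 0.28 (SE, adjusted p = 0.00594). WDR19, an intraflagellar transport protein, fell by 1.77 ± 0.43 (SE, adjusted p = 0.0153), with −1.47 to 0.19 at LD and −3.46 to −1.33 at PO. ARL3, a GTPase that releases lipidated cargo in cilia, ran from 0.61 to 1.96 at LD and from 2.11 to 3.14 at PO and rose by 1.16 ± 0.28 (SE, adjusted p = 0.0139). PKD2 and ARL3 did not overlap between the stages, and WDR19 did. Of 51 cilium genes tested, 4 (7.84%) were called higher and 7 (13.7%) lower at PO, and 11 and 9 without LD 3 and PO 2. These shares are near those of all features (6.86% and 10.7%), and the median was −0.12. ARL3 and WDR19 missed the threshold in a fit of the 10 LD and PO arrays alone (adjusted p = 0.0517 to 0.052). The higher cilium count was 1 to 7 on leaving out one at a time of LD 1, LD 4, LD 5, PO 1, PO 2, PO 3, PO 4 and PO 5. The lower cilium count was 3 to 4 on leaving out one at a time of LD 4, LD 5 and PO 3.

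The calcium-handling genes ITPR1 and ATP2B1 fell, while a potassium channel gene rose beside ABCC8. ITPR1, the inositol trisphosphate receptor of the endoplasmic reticulum, stood at 0.30, 0.01, −0.21, 1.55 and 0.37 on the LD arrays and −0.79, −0.73, −1.51, −2.09 and −2.22 on the PO arrays. The stages did not overlap, and it changed by −1.88 ± 0.37 (SE, adjusted p = 0.00707). ATP2B1, a plasma membrane calcium pump, fell by 2.14 ± 0.55 (SE, adjusted p = 0.0179), with −0.54 to 2.91 at LD and −1.46 to −0.54 at PO. SCN8A, a sodium channel, ran from −5.08 to −4.67 at LD and from −7.58 to −6.16 at PO and fell by 2.04 ± 0.48 (SE, adjusted p = 0.0129). KCNA3, a potassium channel, rose by 3.44 ± 0.70 (SE, adjusted p = 0.00755), with −9.54 to −5.82 at LD and −7.03 to −3.60 at PO. SCN8A did not overlap between the stages, and ATP2B1 and KCNA3 did, with LD 3 the LD array nearest to PO for ATP2B1 and KCNA3. Of 50 ion channel and pump genes tested, 5 (10%) were called higher and 6 (12%) lower at PO, and 7 and 8 without LD 3 and PO 2. Over all features these shares were 6.86% and 10.7%. The median was 0.06. KCNA3 was well above background in 1 of 5 arrays at LD, SCN8A in 2 of 5 arrays at PO and KCNA3 in 4 of 5 arrays at PO, so these sizes are not exact. KCNA3 (now 0.56) and SCN8A (now −0.39) missed the threshold with normexp background correction (adjusted p = 0.3 to 0.399). ATP2B1 missed the threshold in a fit of the 10 LD and PO arrays alone (adjusted p = 0.0627). ATP2B1 missed it without LD 5 (adjusted p = 0.0507). The higher channel count was 1 to 3 on leaving out one at a time of LD 1, LD 4, LD 5, PO 1, PO 3 and PO 5. The lower channel count was 3 to 10 on leaving out one at a time of LD 3 and LD 5.

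Of 52 apoptosis regulators tested, 5 (9.62%) were called higher and 6 (11.5%) lower at PO, and 10 and 8 without LD 3 and PO 2. These shares compare with 6.86% and 10.7% over all features, and the median was 0.10. BCL2L1, which encodes BCL-X, ran from −8.30 to −5.68 at LD and from −5.98 to −4.02 at PO and rose by 2.55 ± 0.52 (SE, adjusted p = 0.00791). BCL2, the founding member, fell by 1.92 ± 0.45 (SE, adjusted p = 0.0131), with −6.75 to −5.07 at LD and −9.26 to −6.96 at PO. BCL2 did not overlap between the stages, and BCL2L1 did, with LD 3 the LD array nearest to PO for BCL2L1. CFLAR, an inhibitor of death receptor caspases, ran from −6.61 to −5.47 at LD and from −5.39 to −4.34 at PO and rose by 1.50 ± 0.29 (SE, adjusted p = 0.00625). CASP4, an inflammatory caspase read on 4 LD arrays, rose by 3.46 ± 0.78 (SE, adjusted p = 0.0119), with −4.69 to 0.43 at LD and 0.93 to 1.64 at PO. PDCD4, an inhibitor of translation initiation, ran from −0.56 to 3.85 at LD and from −1.18 to −0.06 at PO and fell by 2.80 ± 0.66 (SE, adjusted p = 0.0132). CFLAR and CASP4 did not overlap between the stages, and PDCD4 did, with LD 3 the LD array nearest to PO for PDCD4. Among chromatin genes, KAT5, an acetyltransferase, rose by 1.64 ± 0.36 (SE, adjusted p = 0.0104), with −0.33 to 1.76 at LD and 1.20 to 2.45 at PO. HDAC4, a deacetylase, ran from −5.65 to −4.57 at LD and from −4.16 to −2.50 at PO and rose by 1.61 ± 0.37 (SE, adjusted p = 0.0115). HDAC4 did not overlap between the stages, and KAT5 did, with LD 3 the LD array nearest to PO for KAT5. EZH2, given above, fell. Of 65 histone and DNA modifiers tested, 5 (7.69%) were called higher and 4 (6.15%) lower at PO, and 11 and 11 without LD 3 and PO 2. Over all features these shares were 6.86% and 10.7%. Their median of −0.10 reached 0.00 under another scaling, the only one of the 34 lists whose median changed sign over the 5 scalings. BCL2L1 was well above background in 1 of 5 arrays at LD and BCL2 and CFLAR in 3 of 5 arrays at LD, so these sizes are not exact. BCL2 was not well above background on any PO array and was at least 1.98-fold lower at PO. HDAC4 (now 0.64), BCL2L1 (now 0.42), CFLAR (now 0.29), BCL2 (now −0.24) and CASP4 (now 2.11) missed the threshold with normexp background correction (adjusted p = 0.0563 to 0.743). PDCD4 missed the threshold in a fit of the 10 LD and PO arrays alone (adjusted p = 0.0528). CASP4 missed the threshold in the deposited value table (adjusted p = 0.0788). HDAC4 and CASP4 missed the threshold with the mean of all probes (adjusted p = 0.0569 to 0.125). The higher apoptosis count was 3 to 14 on leaving out one at a time of LD 3 and LD 5. The lower apoptosis count was 2 to 3 on leaving out one at a time of LD 4, LD 5, PO 3 and PO 5. The higher modifier count was 2 to 11 on leaving out one at a time of LD 1, LD 3, LD 4, LD 5, PO 3 and PO 5. The lower modifier count was 1 to 11 on leaving out one at a time of LD 1, LD 3, LD 4, LD 5, PO 3 and PO 5.

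The same step in the theca wall was compared through the difference of the changes, fitted on all 34 arrays. It was higher in GC for 2421 of 27487 features (8.81%) and lower for 2941 (10.7%). Of the 1677 GC rises in that fit, 1032 (61.5%) rose more in GC than in TW. Of the 2626 GC falls, 1857 (70.7%) fell more. Their median TW changes were 0.06 and −0.18. Both groups were chosen by their change on the same GC arrays that enter the difference, so the choice itself raises these shares. TW changed past the threshold in the same direction for 100 of the rises and 71 of the falls, and in the opposite direction for 46 and 30. The change was higher in GC for genes of several roles. AGPAT4 changed by 5.32 in GC and −0.45 in TW, a difference of 5.77 ± 0.82 (SE, adjusted p = 0.000322). SLC25A1 changed by 1.90 in GC and −1.37 in TW, a difference of 3.27 ± 0.52 (SE, adjusted p = 0.000464). GNAZ changed by 4.30 in GC and −1.01 in TW, a difference of 5.31 ± 0.91 (SE, adjusted p = 0.00063). The acetyltransferase gene moved likewise. KAT5 changed by 1.64 in GC and −0.32 in TW, a difference of 1.97 ± 0.35 (SE, adjusted p = 0.000791). Lower changes in GC included calcium release, guidance and mitosis. ITPR1 changed by −1.88 in GC and 1.12 in TW, a difference of −2.99 ± 0.49 (SE, adjusted p = 0.00048). SEMA3C changed by −2.07 in GC and 1.62 in TW, a difference of −3.70 ± 0.65 (SE, adjusted p = 0.000711). TOP2A changed by −4.61 in GC and 0.83 in TW, a difference of −5.44 ± 0.96 (SE, adjusted p = 0.000711). For other leading risers the difference between the layers missed the threshold. FGG changed by 7.30 in GC and 3.41 in TW, a difference of 3.90 ± 1.53 (SE, adjusted p = 0.0701). BDNF changed by 5.54 in GC and 3.26 in TW, a difference of 2.29 ± 1.22 (SE, adjusted p = 0.193). CFB changed by 3.04 in GC and 3.41 in TW, a difference of −0.37 ± 1.06 (SE, adjusted p = 0.852). The respiratory chain had 36 of 53 members with a higher change in GC, and the mitotic list 57 of 68 with a lower one. Of the called differences, 45.2% were higher in GC, against 69.5% after centring on the median and 58.2% with normexp. The TW arrays LD 6, LD 7, ED 4 and PO 4, on 1 slide, had 1285 to 1718 outlier spots, against 69 to 366 on the GC arrays. Without these 4 arrays, the difference was higher in GC for 2303 features and lower for 2758. The median changes of marker lists in TW over this step were 1.34 for leukocyte, 0.90 for endothelial, 1.17 for red blood cell, 0.41 for smooth muscle and −0.24 for theca markers. Their part in the differences between the layers was not tested. The labels do not say whether both layers were taken from one follicle.

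**Figure D5:**
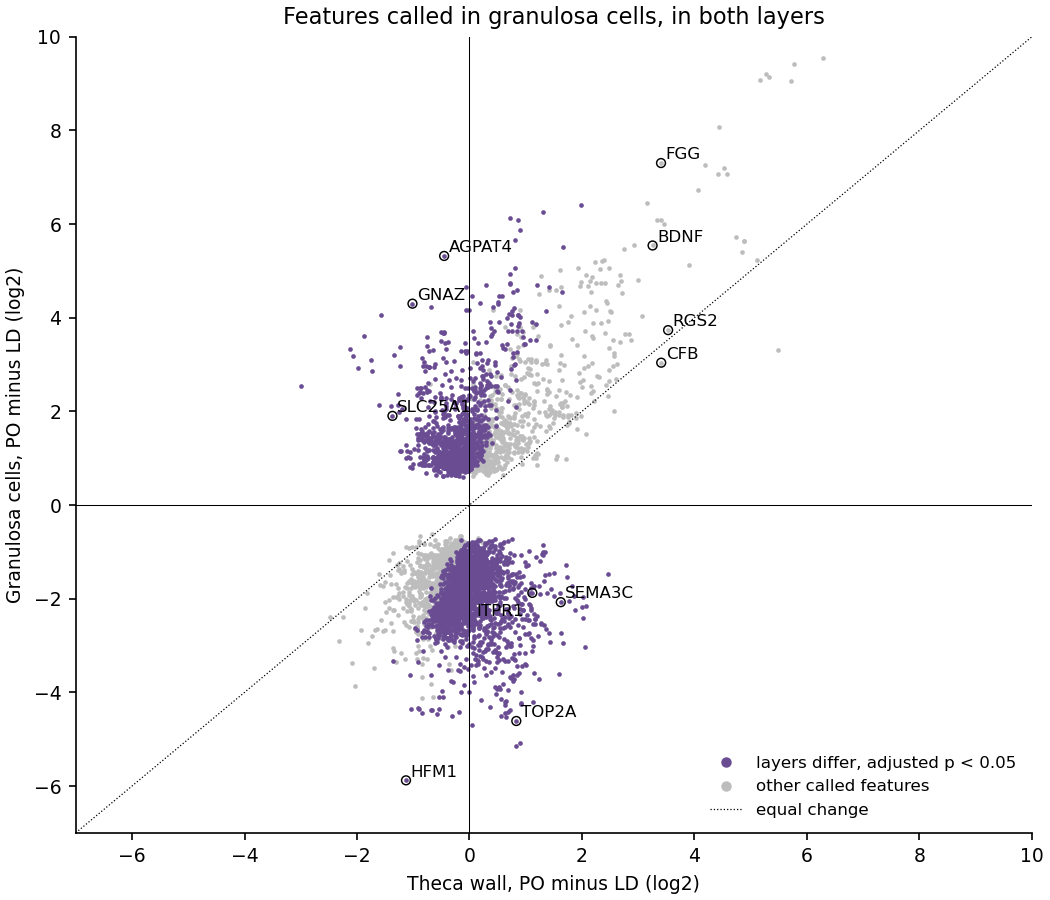
Change from late dominant to preovulatory in granulosa cells (log2, y axis) against that in the theca wall (log2, x axis) for each feature called in granulosa cells, purple where the changes of the layers differ at an adjusted p under 0.05, with a dotted line of equal change. AGPAT4 lies at 5.32 and −0.45, off the dotted line, and CFB near it at 3.04 and 3.41.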

How the data were processed

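According to the labels' protocols, TRIzol was used to extract RNA. For each sample 500 ng with an integrity number above 7.0 was amplified by T7 transcription from oligo(dT)-primed cDNA, labelled with Cy3 and hybridised. Per the file headers, spot intensity was read with Feature Extraction 9.5.3.1; the submitters' processing notes give 9.1. This processed intensity, as deposited, has background subtracted and is not scaled between arrays. The authors' value table holds log2 values that matched quantile-normalized mean signals (r = 0.999995).

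Signals were divided by the 75th percentile of their array and taken to log2. Control and outlier spots were left out, spots of a probe averaged, and a gene read by its probe with the highest mean. Features with signals well above background on 5 or more of the 15 GC arrays were kept, so the arrays of a single stage could suffice. They were fitted with limma 3.58.1 (R 4.3.3, lmFit and eBayes) with a mean per stage. A call is an adjusted p (Benjamini-Hochberg, all features) under 0.05. Of 43603 probes, 23112 received 1 of 12594 symbols from names, accessions or descriptions in the files (1199 of them protein names matched to symbols by hand) and RefSeq genes of assembly TB-T2T. Tested on simulated data with 24535 features, the fit recovered 12%, 72%, 74% and 92% of genes changed by 1, 2, 3 and 4 log2 units, with 3 false calls. The simulated noise was independent between arrays and equal in all stages, unlike that of these arrays, so these rates need not hold for the data.

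Genes that could be named were the 15 largest rises and falls well above background on at least 4 arrays of the higher stage, the 12 lowest adjusted p each way with a change of at least 1, the 5 lowest each way of 66 gene lists, the 10 largest differences from TW each way, the 6 rises of at least 2 with the smallest and the 6 with the largest spread at PO, and 25 fixed genes. Which of these are given was decided with their values known, mainly where the call held without any single array. The lists hold 2929 genes, 2262 of them tested (186 higher, 234 lower). Some measured genes are not reported here. The members and lists were chosen with earlier results of these data known. Alternatives were other scalings, filters, probes, slide blocks, weights and arrays left out. Where no array of a stage was above background, the other stage's mean was set against a floor, per array the lowest signal well above background or the probe's own, whichever was higher, and the fold is a lower bound.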

Additional observations from a re-analysis of the deposited data

Results flagged for a closer look

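In 27 of 294 groups of the named genes 1 array lay far from the others of its stage (9.18%), 12 times on PO 2 and 9 times on LD 3. Dixon's test would flag about 5% of independent groups by chance. These genes share the same arrays and were chosen with their values known, so the 2 shares cannot be compared. Levels on those arrays are in brackets. LD 2 was the highest of its group, by a gap that exceeds the 95% value of Dixon's test, for RDH12 (−2.36). LD 3 was the highest of its group, by a gap that exceeds the 95% value of Dixon's test, for AGPAT4 (−2.20), CFLAR (−5.47), DKK1 (−5.44), FGG (−0.30), KAT5 (1.76), MVK (−0.11), PNMT (−4.07), RAB3A (−5.13) and SULT2A1 (−3.23). PO 2 was the highest of its group, by a gap that exceeds the 95% value of Dixon's test, for CAPRIN2 (−2.59), CYP11A1 (5.40), FZD6 (−2.07) and LNX2 (−5.52). PO 2 was the lowest of its group, by a gap that exceeds the 95% value of Dixon's test, for ADAMTS8 (−2.52), AGPAT4 (−2.54), NPPB (−2.34), NPPC (−0.79), PLAU (−0.88), PTGS2 (−1.55), RDH12 (−5.69) and SRM (1.09). PO 3 was the lowest of its group, by a gap that exceeds the 95% value of Dixon's test, for PKD2 (−4.17). PO 4 was the lowest of its group, by a gap that exceeds the 95% value of Dixon's test, for ATP2B1 (−1.46), SEMA3E (−6.29), SMC4 (−1.75) and STAR (1.56).

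Most named genes were chosen by their call in GC and some by their difference from TW, so a high count follows from the choice. Over all features the difference of the changes was called higher for 8.81% and lower for 10.7%. It was called at an adjusted p under 0.05 in the limma fit of 34 arrays for 104 of 147 named genes. The log2 difference, GC minus TW, is in brackets. It was positive, from the largest down, for AGPAT4 (5.77), GNAZ (5.31), PLAU (5.24), MORN3 (4.90), DKK1 (4.42), RAB3A (4.14), ABCC8 (3.85), SLC16A10 (3.82), PNMT (3.65), RHOF (3.48), ADAMTS8 (3.35), CASP4 (3.31), RAMP1 (3.30), SLC25A1 (3.27), WRN (3.24), PLCL1 (3.23), NRG2 (3.18), RAB3B (3.02), SULT2A1 (3.00) and TM7SF2 (2.82). Next in size were NPAS2 (2.78), CLDN4 (2.59), TSPO (2.47), KCNA3 (2.47), NSDHL (2.30), GRAMD1B (2.29), NRP1 (2.17), CYP11A1 (2.13), DNAAF6 (2.10), BCL2L1 (2.10), NR2F6 (2.04), KAT5 (1.97), DNAJA3 (1.73), OGDH (1.73), ARL3 (1.73), PGAM1 (1.72), MVK (1.59), NPPB (1.57), CEP44 (1.49) and RHOU (1.46). Next in size were MGST2 (1.38), HLCS (1.38), DDX56 (1.28), SRM (1.28), ELOVL5 (1.28), DKC1 (1.21), GPX1 (1.19) and CCT4 (1.15). It was negative, from the largest in size, for CENPF (−5.98), TOP2A (−5.44), E2F8 (−5.33), TTK (−5.10), HFM1 (−4.75), SGO2 (−4.73), NR3C2 (−4.64), OCLN (−4.42), REP15 (−4.37), HSD17B1 (−4.25), FAM83B (−4.20), SEMA3C (−3.70), FBN2 (−3.68), PLK4 (−3.42), KIF20B (−3.38), CAPRIN2 (−3.19), ADAMTS6 (−3.12), ITPR1 (−2.99), CEP135 (−2.92) and ZFHX3 (−2.91). Smaller negative differences belonged to FZD6 (−2.87), ITIH4 (−2.79), HELLS (−2.77), VCAN (−2.73), LIN9 (−2.68), EZH2 (−2.64), FANCA (−2.47), PAQR8 (−2.44), SYTL4 (−2.42), LNX2 (−2.42), SMC4 (−2.39), ATP2B1 (−2.36), PDCD4 (−2.32), ROCK2 (−2.29), LBR (−2.27), CENPQ (−2.23), CDC7 (−2.20), GCLC (−2.16), DIAPH3 (−2.15) and LCAT (−2.12). Smaller negative differences belonged to IL12A (−2.11), SCN8A (−2.07), ALMS1 (−1.95), BCL2 (−1.90), RAB23 (−1.89), RFC3 (−1.88), ZFP90 (−1.87), CNTLN (−1.84), APC (−1.83), RBL1 (−1.76), FZD3 (−1.73), PKD2 (−1.65), RAD51AP1 (−1.54), CEP170 (−1.47), ORC3 (−1.34) and PSMG2 (−1.16).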

How the results depend on the processing

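The reported fit gave 1682 called features higher, 2421 features differing between layers higher, 186 called list members higher, 2627 called features lower, 2941 features differing between layers lower and 234 called list members lower. Other settings moved counts by over 1.5 times. With only the 10 LD and PO arrays fitted, there were 444 called features higher, 47 called list members higher, 1000 called features lower and 60 called list members lower. With all 34 arrays fitted, there were 3497 called features higher, 397 called list members higher, 4205 called features lower and 382 called list members lower. With array weights, there were 4695 called features higher, 4379 features differing between layers higher, 531 called list members higher, 5235 called features lower, 4910 features differing between layers lower and 482 called list members lower. Without LD 3 and PO 2, there were 3290 called features higher, 371 called list members higher, 4034 called features lower and 381 called list members lower. With arrays centred on the median, there were 4331 features differing between layers higher and 1900 features differing between layers lower. With normexp, there were 1607 features differing between layers higher, 1641 called features lower and 1152 features differing between layers lower. Leaving out 1 array at a time gave 641 to 3340 called features higher, 1973 to 3394 features differing between layers higher, 65 to 381 called list members higher, 1428 to 3815 called features lower, 2373 to 3849 features differing between layers lower and 102 to 377 called list members lower. The LD and PO arrays of each pair on 1 slide were also fitted with that slide as a block, the paired analysis these arrays allow. With slide as a fixed block (1695 and 2640 called features) the calls of HSD17B1 (adjusted p = 0.055) and GPX3 (adjusted p = 0.0635) were lost among the named genes, and 0 with a random block. Among the named genes, 32 of 138 calls were lost with normexp, 38 with only the 10 arrays fitted and 5 in the value table. Normexp added an offset of 50, which shrinks the log2 changes of dim probes. The fit of 10 arrays had fewer arrays and lacked the ED arrays, which lay closer together than the LD arrays. What part each of these had in the losses was not tested. Uncalled genes changed sign, and the cause was not tested. AREG was 0.16 as reported and −1.06 to 1.45 on leaving out 1 array, and −0.25 (with normexp) and −0.18 (the deposited value table). TNFAIP6 was −0.34 as reported and −1.76 to 0.83 on leaving out 1 array. CYP19A1 was 0.06 as reported and −0.62 to 0.48 on leaving out 1 array, and −0.086 (processed signal, quantile normalization), −0.0003 (the deposited value table), −0.99 (mean of all probes of the gene) and −0.33 (with array weights). LHCGR was −0.29 as reported and −0.89 to 0.34 on leaving out 1 array. The design without LD 3 and PO 2 was chosen after seeing the data. Dim probes limit the sizes of changes, since a signal under background is only a bound.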
